A study of Mus musculus with 18 samples.

Results

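Wild-type mouse embryonic stem cells grown in 2i medium with vitamin C were compared with the same cell line grown in serum with LIF. The comparison used 6 of the 18 RNA-seq libraries of a study of Daxx, a histone chaperone, and its members were all 3 libraries labelled wild type and ground state and all 3 labelled wild type and serum. The cells were the E14Tg2a parental line, a male embryonic stem cell line from which the Daxx-null line of the study was derived. The 2i cells grew in an equal mix of Neurobasal and DMEM/F-12 with the N2 and B-27 supplements, albumin, thioglycerol, LIF, an inhibitor of GSK3, an inhibitor of MEK and L-ascorbic acid 2-phosphate, a stable form of vitamin C, at 100 µg/mL. The serum cells grew in DMEM with 10% fetal bovine serum, 2-mercaptoethanol and LIF at 1000 units/mL. The 2i cells were kept on gelatin and the serum cells on gelatin or commercial stem cell plates, with no feeder layer named. Each culture had 3 replicates that the study's design text calls independent, with no word on whether they were separate cultures, thaws or passages. The p-values below therefore measure the spread between libraries, and those of the main fit pool it over all 18 libraries of the study. The remaining libraries were Daxx-null cells in both media and cells of both genotypes under retinoic acid. Because the media differ in base medium, serum, supplements, both inhibitors and vitamin C at once, the effects of these components cannot be told apart.

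LIF sustains self-renewal of mouse embryonic stem cells through the JAK and STAT3 pathway, and serum adds growth factors, among them ligands of the BMP family. Inhibition of MEK blocks the FGF and ERK signal that pushes these cells towards differentiation, and inhibition of GSK3 stabilises β-catenin, which relieves repression of pluripotency genes by Tcf7l1. Cells under both inhibitors are described as being in a naive ground state that resembles the epiblast before implantation, with low DNA methylation. Vitamin C is a cofactor of iron-dependent and 2-oxoglutarate-dependent dioxygenases, a class that holds the TET enzymes, many histone demethylases, collagen prolyl hydroxylases and the prolyl hydroxylases that mark HIF1α for destruction.

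Expression was given by the authors as FPKM, fragments per kilobase of exon scaled to the size of the library, for each gene and each library, and differences are given as log2 fold changes of FPKM plus a pseudocount of 0.5, as 2i minus serum. Values for single libraries follow the order of replicates 1, 2 and 3. The lowest FPKM values of each library were whole multiples of a single step divided by gene length, from which 51.1 to 63.6 × 1e+06 counted units in exons per library were recovered. Replicate 3 of the 2i culture stood apart from its sister libraries. Among 11954 genes with a mean of at least 10 FPKM in 2i, 492 were at least 2-fold below both sisters in replicate 3 and 112 at least 2-fold above them, against at most 6 for replicates 1 and 2. Replicate 3 of the serum culture stood apart less, with 61 genes below and 11 above of 12106. Interferon-stimulated genes (median -1.82 on the log2 scale relative to the mean of replicates 1 and 2, 44 of 45 below both), fibroblast markers (-1.68) and targets of SRF and YAP (-1.27) were low in replicate 3 of 2i, and glycolytic genes (0.53) and sterol synthesis genes (0.47) were high. Results that rest on this library are given with and without it.

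Of 18002 genes tested with limma, 4452 (24.7%) were higher in 2i and 4461 (24.8%) were lower at a Benjamini-Hochberg adjusted p under 0.05, and 9089 were not called. Counts of rises and falls in gene lists are to be read against these shares, and a list near them does not stand apart. In 4980 genes (27.7%) all 2i libraries were above all serum libraries, and in 5501 (30.6%) all were below. The change was at least 2-fold for 2008 of the higher genes (11.2% of those tested) and for 2141 of the lower ones (11.9%). The median log2 fold change over all tested genes was -0.018, the figure against which the medians of gene groups below are to be read. These are RNA abundances of whole cultures, so a higher share of cells expressing a gene and more RNA per cell cannot be told apart. Leaving out replicate 3 of both cultures, a choice made after the data were seen, 4538 genes were higher and 3898 lower.

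**Figure D1:**
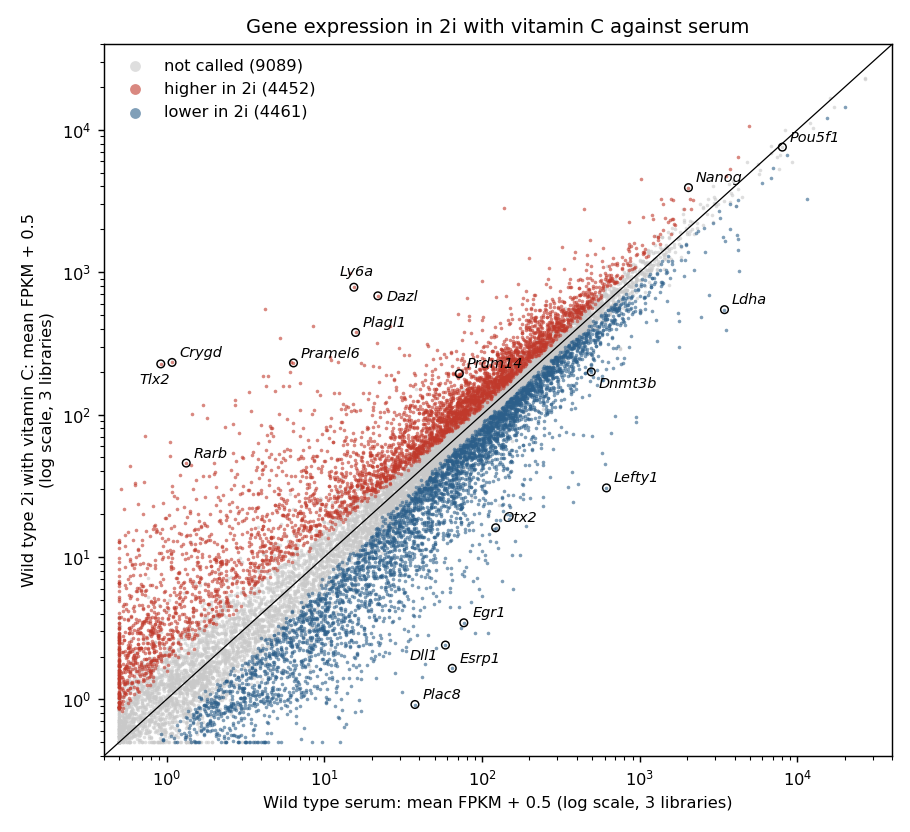
Mean expression of each tested gene in the 3 wild-type 2i libraries (vertical axis, FPKM plus 0.5, log scale) against the 3 wild-type serum libraries (horizontal axis, FPKM plus 0.5, log scale), 1 point per gene, coloured by call, with the diagonal of equal expression. The 4452 higher genes lie above the diagonal and the 4461 lower genes below it, with Tlx2 among the genes farthest above it and Plac8 among those farthest below.

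The largest rises among well-expressed genes were in homeobox genes and in gene families with germline or lens expression. Tlx2, a homeobox gene of the neural crest lineage (chromosome 6, 83018319 to 83020219, minus strand, mm9), had 149, 144 and 386 FPKM in 2i, against 0.499, 0.458 and 0.302 in serum (log2 fold change 7.79, SE 0.36, adjusted p = 5.2e-10). All 3 serum libraries were under 1 FPKM and all 3 2i libraries were above 100, with replicate 3 the highest. Cdx1, a caudal-type homeobox gene that is a direct target of both Wnt and retinoic acid signalling (chromosome 18, 61178516 to 61195853, minus strand), had 725, 735 and 1509.8 FPKM in 2i, against 13.1, 17.3 and 11.6 in serum (log2 fold change 6.02, SE 0.37, adjusted p = 6.4e-09). The groups did not overlap, and replicate 3 of 2i was again the highest. Crygd, Cryge and Crygc, which encode γ-crystallins of the lens, lie within 25 kb of each other on chromosome 1 (65095131 to 65120106) and all rose. Crygd had 236, 231 and 228 FPKM in 2i, against 0.377, 0.52 and 0.855 in serum (log2 fold change 7.77, SE 0.46, adjusted p = 4.7e-09). Cryge had 547, 568 and 534 FPKM in 2i, against 4.66, 3.77 and 2.71 in serum (log2 fold change 7.06, SE 0.32, adjusted p = 4.9e-10). Crygc had 121, 114 and 111 FPKM in 2i, against 1.71, 1.22 and 0.691 in serum (log2 fold change 6.13, SE 0.38, adjusted p = 7.2e-09). The 3 2i libraries were within a narrow range for each of these genes.

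Cancer-testis genes of the Magea family, which are normally expressed in male germ cells, rose together on the X chromosome between 151420318 and 151496096. Magea8 had 91.4, 87.5 and 31.7 FPKM in 2i, against 0.434, 0.133 and 0.131 in serum (log2 fold change 6.47, SE 0.35, adjusted p = 1.6e-09). Magea5 had 83.9, 73.8 and 34.9 FPKM in 2i, against 0.381, 0.84 and 0.415 in serum (log2 fold change 5.88, SE 0.30, adjusted p = 1.1e-09). Magea2 had 54.3, 58.4 and 16.4 FPKM in 2i, against 0.141, 0.13 and 0 in serum (log2 fold change 6.01, SE 0.36, adjusted p = 4.9e-09). In all 3 genes replicate 3 of 2i was the lowest of its culture and still far above every serum library. Ly6a, which encodes the surface antigen Sca-1, had 885, 934 and 531 FPKM in 2i, against 15.5, 16.1 and 13.2 in serum (log2 fold change 5.63, SE 0.30, adjusted p = 1.4e-09). The other named genes among the 12 with the largest rises were Cd180, a Toll-like receptor homologue of B cells (29.3 ± 14.2 in 2i and 0.0157 ± 0.0271 FPKM in serum, SD, n = 3 each), Cyp2b23, a cytochrome P450 (126 ± 20.6 in 2i and 2.2 ± 1.29 FPKM in serum), and Stxbp5l, a syntaxin-binding protein (32.8 ± 5.35 in 2i and 0.134 ± 0.0968 FPKM in serum). The log2 fold changes of genes near 0 in serum depended on the pseudocount: with pseudocounts of 1 and 0.1 they were 7.16 and 8.63 for Tlx2, 5.72 and 7.69 for Magea8, 5.15 and 7.73 for Magea2, 4.76 and 7.86 for Cd180 and 4.89 and 7.21 for Stxbp5l, while the deposited normalised table gave 7.01 for Crygd and 5.28 for Magea5. The γ-crystallin and Magea genes are close copies of one another, and the sources used here do not say how reads shared between copies were counted.

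The largest falls included developmental regulators and genes of signalling pathways. Gli1, the transcriptional effector and target of Hedgehog signalling (chromosome 10, 126766938 to 126778635, minus strand), had 7.15, 6.42 and 2.93 FPKM in 2i, against 162, 168 and 142 in serum (log2 fold change -4.80, SE 0.22, adjusted p = 4.9e-10). Evc, a component of the ciliary Hedgehog pathway (chromosome 5, 37690410 to 37728120, minus strand), had 2.997, 2.59 and 1.66 FPKM in 2i, against 80.7, 81.04 and 107 in serum (log2 fold change -4.96, SE 0.47, adjusted p = 4.7e-07). In both genes the cultures were far apart, and replicate 3 was the lowest 2i library. Dll1, a ligand of Notch receptors, had 2.17, 3.22 and 0.328 FPKM in 2i, against 60.4, 60.1 and 53.9 in serum (log2 fold change -4.86, SE 0.73, adjusted p = 4.7e-05), and the log2 fold change was -4.21 without replicate 3 of 2i. Neurod1, a basic helix-loop-helix factor of neuronal and endocrine cells, had 3.33, 3.24 and 0.735 FPKM in 2i, against 126, 123 and 79.4 in serum (log2 fold change -5.37, SE 0.38, adjusted p = 2.6e-08). Esrp1, a splicing regulator of epithelial cells, had 1.71, 1.39 and 0.36 FPKM in 2i, against 71.4, 73.9 and 47.6 in serum (log2 fold change -5.38, SE 0.35, adjusted p = 1.2e-08). Replicate 3 was the lowest 2i library for each of these genes, and no 2i library came near serum. Plac8, a small cysteine-rich protein, had 0, 1.26 and 0 FPKM in 2i, against 43.6, 44.7 and 22.99 in serum (log2 fold change -5.56, SE 0.43, adjusted p = 6.1e-08), with log2 fold changes of -4.80 and -7.22 at pseudocounts of 1 and 0.1. Napsa, an aspartic protease (-4.92), Gngt2, a G protein γ subunit (-4.85), Wdr86 (-4.65), Bcl6b, a transcriptional repressor (-4.62), and Calca, the calcitonin gene (-4.56), completed the list with Egr1.

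Among naive pluripotency regulators, 6 of 19 tested members rose and 3 fell (median log2 fold change 0.092), while core pluripotency genes changed towards lower values: 2 of 14 tested members rose and 6 fell (median log2 fold change -0.51). Nanog, a homeobox factor at the centre of the network, had 4026, 3910.4 and 3825 FPKM in 2i, against 2169, 2063 and 1876 in serum (log2 fold change 0.95, SE 0.21, adjusted p = 0.0013). Tfcp2l1, a target of LIF signalling, had 1116, 1071 and 1131 FPKM in 2i, against 544, 487 and 450.1 in serum (log2 fold change 1.17, SE 0.17, adjusted p = 4.0e-05). Tbx3, a T-box repressor, had 790.1, 765 and 802 FPKM in 2i, against 276, 282 and 249.9 in serum (log2 fold change 1.55, SE 0.22, adjusted p = 2.7e-05). Prdm14, which represses FGF receptor signalling and the de novo methyltransferases, had 204, 181 and 195 FPKM in 2i, against 67.3, 67.1 and 79.4 in serum (log2 fold change 1.44, SE 0.18, adjusted p = 7.6e-06). For these 4 genes all 2i libraries were above all serum libraries, and replicate 3 did not stand apart. Klf2, a Krüppel-like factor of the same network, had 2367, 2295 and 2507 FPKM in 2i, against 1389.8, 1548 and 1406 in serum (log2 fold change 0.72, SE 0.16, adjusted p = 0.0017). Klf4, Klf5, Esrrb and Zfp42, also members of the naive network, were not called: Esrrb averaged 2048 ± 443 in 2i and 1605 ± 60.2 FPKM in serum, and Zfp42 averaged 3246 ± 215 in 2i and 2996 ± 67.2 FPKM in serum. Pou5f1, which encodes OCT4, averaged 7548 ± 708 in 2i and 8019 ± 340.0 FPKM in serum and was not called (log2 fold change -0.091, SE 0.44, adjusted p = 0.89). Sox2, its partner, fell (1831, 1832 and 1655 FPKM in 2i, against 3306, 3398 and 3446 in serum; log2 fold change -0.93).

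Several other pluripotency-associated genes were lower in 2i. Utf1, a chromatin factor, had 806, 955 and 319.5 FPKM in 2i, against 2810.4, 2974 and 2469.9 in serum (log2 fold change -2.13, SE 0.36, adjusted p = 1.5e-04). Lin28a and Lin28b, which block maturation of let-7 microRNAs, both fell. Lin28a had 239.6, 308 and 131 FPKM in 2i, against 757, 826 and 697 in serum (log2 fold change -1.83, SE 0.21, adjusted p = 2.9e-06). Lin28b had 18.01, 16.1 and 9.29 FPKM in 2i, against 76.1, 81.7 and 75.6 in serum (log2 fold change -2.44, SE 0.19, adjusted p = 6.5e-08). The lowest library was 2i replicate 3 for all 3 genes, and none of them overlapped with serum. Socs3, the feedback inhibitor of LIF signalling, averaged 552 ± 13.8 in 2i and 1078 ± 39.7 FPKM in serum and fell. Fgf4, the autocrine ligand of FGF signalling, averaged 532 ± 17.8 in 2i and 933 ± 62.6 FPKM in serum (log2 fold change -0.81, SE 0.17, adjusted p = 0.0012), and its adjusted p was 0.072 with a pseudocount of 0.1. Gdf3, a Nodal-related ligand, and Dppa2, a chromatin factor of early embryos, went the other way. Gdf3 had 728, 834 and 666 FPKM in 2i, against 287, 310.3 and 338 in serum (log2 fold change 1.25, SE 0.18, adjusted p = 4.0e-05). Dppa2 had 449, 462 and 313 FPKM in 2i, against 119, 125 and 119 in serum (log2 fold change 1.73, SE 0.25, adjusted p = 3.7e-05).

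For formative and primed epiblast markers, 1 of 19 tested members rose and 8 fell (median log2 fold change -0.50). Pou3f1, a POU factor of the formative epiblast, had 8.11, 6.67 and 4.195 FPKM in 2i, against 128, 181 and 92.2 in serum (log2 fold change -4.29, SE 0.39, adjusted p = 3.4e-07). Otx2, which directs the exit from the naive state, had 15.6, 17.2 and 13.8 FPKM in 2i, against 130.1, 143 and 91.8 in serum (log2 fold change -2.91, SE 0.29, adjusted p = 7.2e-07). Fgf5, the classical marker of the post-implantation epiblast, had 0.199, 0.227 and 0.382 FPKM in 2i, against 6.34, 9.93 and 2.02 in serum (log2 fold change -2.88, SE 0.48, adjusted p = 1.2e-04). In each of these genes the 3 2i libraries were below the lowest serum library, and serum replicate 3 was the lowest of its culture. Without replicate 3 of both cultures the log2 fold change of Fgf5 was -3.57. Pim2, a serine kinase, averaged 39.3 ± 10.6 in 2i and 372 ± 134 FPKM in serum and fell as well. The member that rose was Eomes, a T-box factor of mesendoderm (35.7, 37.98 and 26.6 FPKM in 2i, against 12.3, 12.5 and 10.4 in serum; log2 fold change 1.46, SE 0.26, adjusted p = 2.6e-04). With the replicate number as a block 4 members were called higher, and without 2i replicate 3 or in the 6 wild-type libraries alone there were 2.

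**Figure D2:**
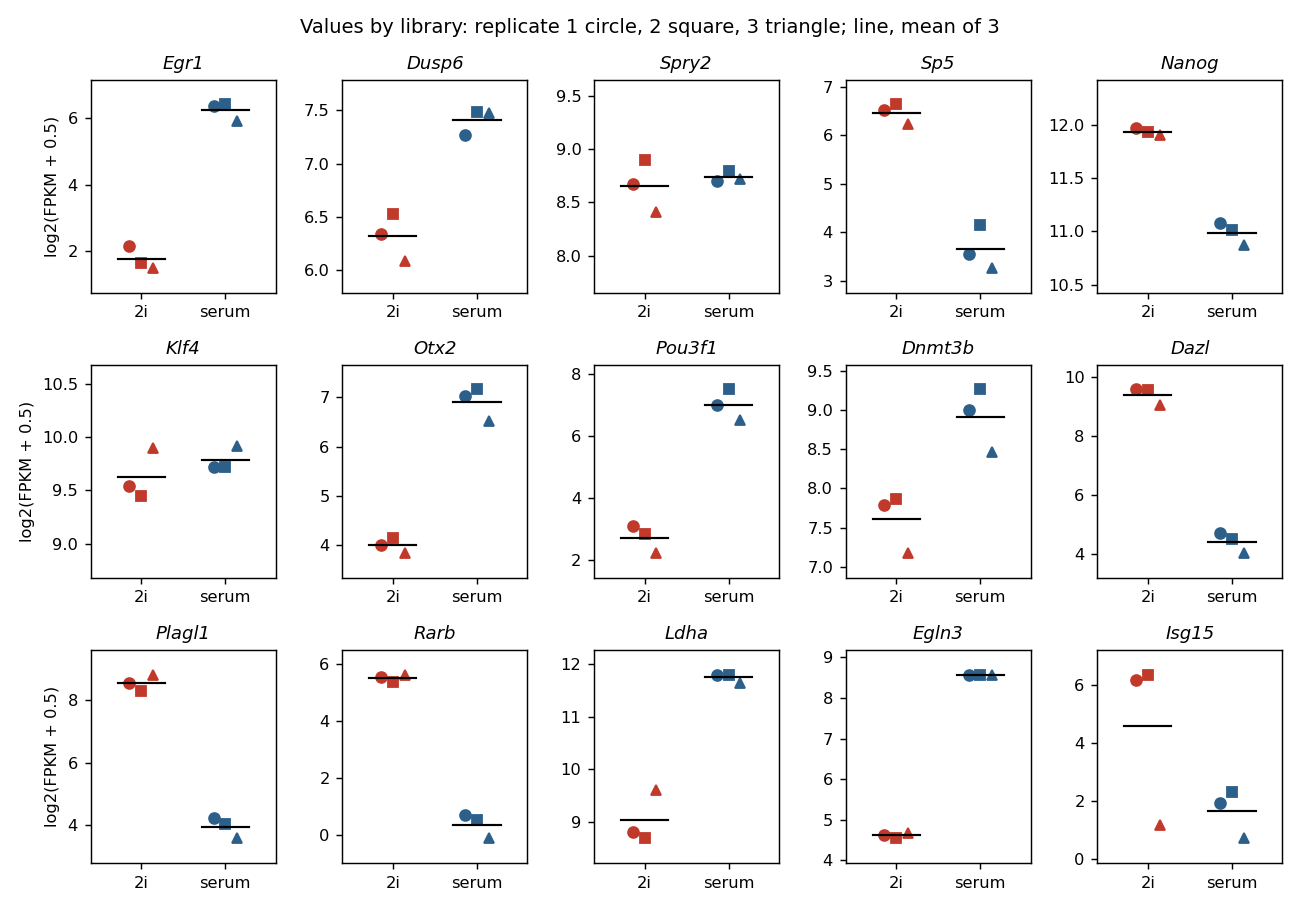
Log2 of FPKM plus 0.5 for 15 genes in each library, with the wild-type 2i libraries (red) left of the wild-type serum libraries (blue) in every panel; circles, squares and triangles are replicates 1, 2 and 3 and lines are means of 3 libraries. Nanog, Sp5, Dazl, Plagl1 and Rarb sit higher in all 3 2i libraries, Egr1, Dusp6, Otx2, Pou3f1, Dnmt3b, Ldha and Egln3 sit lower, Spry2 and Klf4 overlap, and Isg15 shows replicate 3 of 2i (1.76 FPKM) among the serum libraries and far below the other 2i libraries.

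Genes of FGF and ERK feedback were lower in 2i in part: 1 of 20 tested members rose and 11 fell (median log2 fold change -0.73). Egr1, an immediate early target of ERK (chromosome 18, 35020861 to 35024610, plus strand), had 3.94, 2.63 and 2.29 FPKM in 2i, against 83.03, 85.6 and 59.95 in serum (log2 fold change -4.49, SE 0.23, adjusted p = 1.2e-09). Ier3, another immediate early gene, had 32.6, 27.98 and 30.2 FPKM in 2i, against 389, 393 and 274 in serum (log2 fold change -3.50, SE 0.28, adjusted p = 8.5e-08). Spry4, a feedback inhibitor of receptor tyrosine kinases, had 45.7, 62.2 and 29.1 FPKM in 2i, against 219, 257 and 254 in serum (log2 fold change -2.47, SE 0.26, adjusted p = 1.4e-06). No 2i library reached the lowest serum library for these 3 genes. Dusp4 and Dusp6, phosphatases that inactivate ERK and related kinases, both fell: Dusp4 averaged 7.497 ± 2.47 in 2i and 76.3 ± 8.31 FPKM in serum (log2 fold change -3.31, SE 0.64, adjusted p = 5.0e-04). Dusp6 averaged 79.9 ± 12.1 in 2i and 170.1 ± 14.04 FPKM in serum (log2 fold change -1.09, SE 0.25, adjusted p = 0.0019). Myc, a growth regulator, averaged 41.7 ± 22 in 2i and 109.8 ± 34.7 FPKM in serum (log2 fold change -1.52, SE 0.33, adjusted p = 0.0014). Other genes that are commonly used as readouts of this pathway were not called. Etv4, an ETS factor, had 434, 472 and 461 FPKM in 2i, against 309, 319 and 318 in serum; Etv5 had 789, 817 and 804 FPKM in 2i, against 937, 980.5 and 874 in serum; Spry2 had 406, 477 and 339 FPKM in 2i, against 415, 443 and 422 in serum. The Etv4 libraries of 2i were all above those of serum (log2 fold change 0.53, adjusted p = 0.18), and those of Etv5 were all below (-0.21, adjusted p = 0.23). With the replicate block the adjusted p was 0.0027 for Etv4 and 0.034 for Etv5, and in the fit of the 6 wild-type libraries alone it was 7.3e-04 and 0.031. Ccnd1, cyclin D1, averaged 259 ± 19.7 in 2i and 309.9 ± 66 FPKM in serum and was not called either. Phlda1 was the single member that rose (113, 123 and 75.3 FPKM in 2i, against 39.1, 43.1 and 44.7 in serum), and 2 members were called higher without replicate 3 of 2i, with the replicate block and in the 6 wild-type libraries alone.

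Targets of β-catenin were called about as often as all tested genes (24.7% higher and 24.8% lower): 5 of 20 tested members rose and 5 fell (median log2 fold change 0.23). Axin2, a feedback inhibitor of the pathway and its general target, had 99.1, 97.1 and 99.4 FPKM in 2i, against 29.4, 29.7 and 24.3 in serum (log2 fold change 1.81, SE 0.13, adjusted p = 2.6e-08). Sp5, a zinc finger factor that is a direct target, had 91.5, 98.9 and 74.8 FPKM in 2i, against 11.3, 17.2 and 9.11 in serum (log2 fold change 2.81, SE 0.23, adjusted p = 1.3e-07). Wif1, a secreted Wnt inhibitor, had 7.43, 7.08 and 6.89 FPKM in 2i, against 1.01, 1.12 and 0.387 in serum (log2 fold change 2.56, SE 0.35, adjusted p = 2.1e-05). With Cdx1, these members rose without overlap between the cultures. Lef1, a β-catenin partner that is also a target, fell (4.76, 2.88 and 4.85 FPKM in 2i, against 49.6, 57.3 and 41.5 in serum; log2 fold change -3.44, SE 0.34, adjusted p = 7.1e-07), as did Nkd2, a feedback inhibitor (2.53 ± 1.12 in 2i and 9.999 ± 1.898 FPKM in serum), and Rnf43, a ubiquitin ligase that removes Wnt receptors (2.51 ± 0.689 in 2i and 5.99 ± 1.48 FPKM in serum). T and Cdx2 were not called. Cdx2 averaged 8.43 ± 2.06 in 2i and 3.46 ± 0.863 FPKM in serum (log2 fold change 1.17, SE 0.52, adjusted p = 0.074). It was called higher with the replicate block (adjusted p = 0.02), in the fit of the 6 wild-type libraries alone (0.016), after quantile normalization (0.032) and in the deposited normalised table (0.028). Of 12 members with a RefSeq promoter window of 300 bases, only that of Sp5 held the TCF-type sequence CTTTGAT on either strand, which 4.29% of the 27025 genes in the promoter table and 3.24% of the tested genes with a window have. The Sp5 window on GRCm38.p6 (chromosome 2, 70474773 to 70474972, plus strand, from 150 bases before to 50 bases after the annotated start) is printed with this sequence in capitals. The ETS-type sequence CCGGAAGT was searched likewise for the FGF and ERK list. It stood in 0 of 12 windows, against 7.43% of the tested genes with a window.

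Sp5: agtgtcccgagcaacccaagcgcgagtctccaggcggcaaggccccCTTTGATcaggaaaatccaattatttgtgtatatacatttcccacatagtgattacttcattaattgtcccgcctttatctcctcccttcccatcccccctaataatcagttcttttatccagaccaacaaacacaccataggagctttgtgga

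Among targets of Nodal and BMP signalling, 3 of 18 tested members rose and 5 fell (median log2 fold change -0.030). Lefty1 and Lefty2, secreted antagonists that Nodal induces, fell: Lefty1 had 25.8, 21.2 and 43.2 FPKM in 2i, against 579, 617 and 648 in serum (log2 fold change -4.39, SE 0.26, adjusted p = 4.6e-09). Lefty2 had 45.4, 44.9 and 118 FPKM in 2i, against 281, 280.1 and 267 in serum (log2 fold change -2.14, SE 0.29, adjusted p = 2.0e-05). Replicate 3 of 2i was the highest 2i library for both and remained below serum. Id2, an inhibitor of basic helix-loop-helix factors that BMP signalling induces, had 13.9, 13.8 and 1.605 FPKM in 2i, against 94.3, 109 and 111 in serum (log2 fold change -3.79, SE 0.56, adjusted p = 4.0e-05), and its log2 fold change was -2.87 without replicate 3 of 2i. Id1 was not called (148 ± 7.33 in 2i and 216 ± 12.5 FPKM in serum), but was lower with the replicate block (adjusted p = 0.0066) and in the 6 wild-type libraries alone (0.0015). Id3 was called higher (119, 164 and 32.2 FPKM in 2i, against 43.7, 40.5 and 19.3 in serum; log2 fold change 1.39, SE 0.45, adjusted p = 0.019), but not without 2i replicate 1 (adjusted p = 0.079), 2i replicate 2 (0.11) or serum replicate 3 (0.098) or in the 6 wild-type libraries alone (0.13), and the log2 fold change was 2.09 without 2i replicate 3. Msx2, a homeobox target of BMP (30.5 ± 2.11 in 2i and 7.45 ± 1.92 FPKM in serum), and Pmepa1, a feedback inhibitor of TGFβ signalling (131 ± 3.46 in 2i and 56.4 ± 3.38 FPKM in serum), rose. With the replicate block 6 members were higher.

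The DNA methylation machinery changed unevenly: 4 of 17 tested members rose and 6 fell (median log2 fold change -0.014). Dnmt3a, a de novo methyltransferase, had 47.7, 45.7 and 39.3 FPKM in 2i, against 125, 139.6 and 121 in serum (log2 fold change -1.53, SE 0.13, adjusted p = 1.6e-07). Dnmt3b, the other one, had 220.3, 233 and 144 FPKM in 2i, against 511, 614 and 352 in serum (log2 fold change -1.30, SE 0.22, adjusted p = 1.6e-04). Dnmt3l, their catalytically inactive cofactor, had 263, 355 and 131 FPKM in 2i, against 694, 763 and 689.7 in serum (log2 fold change -1.63, SE 0.50, adjusted p = 0.013); its adjusted p was 0.069 without replicate 3 of 2i and 0.11 without replicate 3 of both cultures. Dnmt1, the maintenance methyltransferase, averaged 529.8 ± 39.04 in 2i and 475 ± 41.1 FPKM in serum and was not called. Uhrf1, which recruits Dnmt1 to replicated DNA, rose (842, 826 and 967 FPKM in 2i, against 508, 490.1 and 502 in serum; log2 fold change 0.81, SE 0.095, adjusted p = 4.5e-06). Tet1, a 5-methylcytosine dioxygenase, fell (249, 212 and 216 FPKM in 2i, against 362, 334 and 334 in serum). Tet2 averaged 175 ± 30.4 in 2i and 139.8 ± 7.99 FPKM in serum without a call (log2 fold change 0.31, SE 0.14, adjusted p = 0.069). Its adjusted p was 0.036 with the replicate block and also without 2i replicate 2. The RNA of the de novo enzymes and that of Uhrf1 thus moved in opposite directions. In the 6 wild-type libraries alone 2 members of the list were higher. Methylation itself was not measured.

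Germline genes with promoters that are methylated in somatic cells changed in both directions: 20 of 39 tested members rose and 11 fell (median log2 fold change 0.89), and 18 of the rises and 8 of the falls were at least 2-fold. Dazl, an RNA-binding protein of germ cells, had 767, 752 and 526 FPKM in 2i, against 26.04, 22.2 and 15.8 in serum (log2 fold change 4.97, SE 0.29, adjusted p = 4.4e-09). Asz1, a piRNA pathway protein of the mitochondrial surface, had 37.97, 40.2 and 15.2 FPKM in 2i, against 1.102, 0.443 and 0.187 in serum (log2 fold change 4.84, SE 0.35, adjusted p = 2.8e-08). Tuba3b, a testis tubulin, had 290.4, 287 and 119.6 FPKM in 2i, against 12.9, 12.2 and 10.2 in serum (log2 fold change 4.15, SE 0.38, adjusted p = 3.3e-07). Replicate 3 of 2i was the lowest library of its culture for all 3 genes and was above every serum library. Asz1 lay between 4.84 and 5.64 on the log2 scale at pseudocounts of 0.5 and 0.1. Slc25a31, a testis ADP/ATP carrier, had 52.4, 54.3 and 19.9 FPKM in 2i, against 8.305, 9.13 and 4.15 in serum (log2 fold change 2.41, SE 0.39, adjusted p = 1.1e-04). Tex101, a glycoprotein of germ cells, had 69.3, 79.96 and 7.88 FPKM in 2i, against 5.904, 4.902 and 1.44 in serum (log2 fold change 3.15, SE 0.74, adjusted p = 0.0021; 4.20 without replicate 3 of 2i). Meiob, a meiotic DNA-binding protein, fell (1.98, 1.16 and 0.965 FPKM in 2i, against 9.29, 10.3 and 10.2 in serum; log2 fold change -2.52, SE 0.27, adjusted p = 1.8e-06), as did Tdrd1 and Ddx4 of the piRNA pathway (1.37 ± 0.575 in 2i and 6.67 ± 1.005 FPKM in serum for Tdrd1, 16.5 ± 0.554 in 2i and 36.8 ± 9.66 FPKM in serum for Ddx4), Figla, an oocyte factor (1.34 ± 0.708 in 2i and 5.54 ± 1.12 FPKM in serum), and Sycp3 of the synaptonemal complex (77.04, 74.2 and 71.1 FPKM in 2i, against 150.1, 133 and 96.9 in serum; log2 fold change -0.75, SE 0.21, adjusted p = 0.0076). Sycp1, of the same complex, was not called (9.46 ± 1.34 in 2i and 6.31 ± 1.07 FPKM in serum), except after median-ratio scaling (adjusted p = 0.038) and without a variance trend (0.028). No 2i library of the genes that fell reached the lowest serum library.

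Promoters of this class are known for CACGTG E-boxes and for E2F-type sites, at which non-canonical Polycomb complexes bind. The palindrome CACGTG was found in the RefSeq promoter window, 250 bases before to 50 after the start on GRCm38.p6, of 15 of the 34 members that had one (44.1%), against 8.09% of the 27025 genes of the promoter table and 10.9% of the 13039 tested genes with a window. By call it stood in 7 of 19 members that rose, 4 of 8 that fell and 4 of 7 that were not called. The E2F-type sequence GGCGGGAA, searched on both strands, stood in 5 of 34 windows (14.7%), against 2.52% of all genes and 4.24% of the tested genes with a window: 4 of the 19 that rose, 1 of the 8 that fell and none of the 7 others. These matches describe letters in a window and not binding, and the list was assembled from genes of a class known for them. Windows from 150 bases before to 50 after the start are printed for 3 members that rose and 2 that fell, chosen after their values were seen, with matches in capitals. Fkbp6, a co-chaperone of the piRNA pathway, had 241, 213 and 230.2 FPKM in 2i, against 18.4, 18.1 and 13.1 in serum (log2 fold change 3.76, SE 0.30, adjusted p = 8.2e-08). Hormad1, of meiotic chromosome axes, had 45.3, 52.2 and 46.7 FPKM in 2i, against 7.4, 7.46 and 4.01 in serum (log2 fold change 2.88, SE 0.27, adjusted p = 4.0e-07). In Slc25a31 the capitals TTCCCGCC are GGCGGGAA read on the opposite strand. The windows are on chromosome 5, 135349995 to 135350194, minus strand for Fkbp6, chromosome 3, 40708721 to 40708920, plus strand for Slc25a31, chromosome 3, 95559527 to 95559726, plus strand for Hormad1, chromosome 13, 112652261 to 112652460, minus strand for Ddx4 and chromosome 10, 88459437 to 88459636, plus strand for Sycp3.

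Fkbp6: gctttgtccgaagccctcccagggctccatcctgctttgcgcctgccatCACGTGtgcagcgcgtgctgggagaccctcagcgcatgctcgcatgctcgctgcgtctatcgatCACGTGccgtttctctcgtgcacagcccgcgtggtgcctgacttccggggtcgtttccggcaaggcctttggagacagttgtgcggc

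Slc25a31: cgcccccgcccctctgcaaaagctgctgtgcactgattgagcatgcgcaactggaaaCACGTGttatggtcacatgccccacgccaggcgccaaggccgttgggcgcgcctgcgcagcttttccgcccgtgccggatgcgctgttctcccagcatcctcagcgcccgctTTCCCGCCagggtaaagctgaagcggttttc

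Hormad1: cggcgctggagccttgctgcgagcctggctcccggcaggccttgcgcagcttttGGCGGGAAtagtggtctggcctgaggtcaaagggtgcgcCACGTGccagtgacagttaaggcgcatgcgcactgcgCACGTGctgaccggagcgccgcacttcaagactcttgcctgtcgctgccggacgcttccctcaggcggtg

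Ddx4: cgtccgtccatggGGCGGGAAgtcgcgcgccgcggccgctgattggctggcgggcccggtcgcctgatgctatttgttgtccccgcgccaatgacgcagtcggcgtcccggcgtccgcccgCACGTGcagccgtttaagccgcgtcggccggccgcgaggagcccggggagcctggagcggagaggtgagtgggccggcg

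Sycp3: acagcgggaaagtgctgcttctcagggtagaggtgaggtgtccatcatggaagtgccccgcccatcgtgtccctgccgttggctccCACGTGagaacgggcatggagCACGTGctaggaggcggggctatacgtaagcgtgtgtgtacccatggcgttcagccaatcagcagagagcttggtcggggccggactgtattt

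CACGTG thus stood in printed windows of genes that rose and of genes that fell, and windows of both kinds held more than 1 copy (Fkbp6 and Hormad1, which rose, and Sycp3, which fell).

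Clustered reproductive gene families rose as groups. For Rhox homeobox genes of the X chromosome, 6 of 7 tested members rose and 0 fell (median log2 fold change 1.65), with 7 of 14 listed members without a row or below the expression filter. Rhox13 had 235, 239 and 170.5 FPKM in 2i, against 29.9, 21.3 and 13.8 in serum (log2 fold change 3.33, SE 0.34, adjusted p = 9.7e-07). Rhox2a had 37.7, 40.5 and 17.02 FPKM in 2i, against 4.43, 5.62 and 1.803 in serum (log2 fold change 2.88, SE 0.57, adjusted p = 5.7e-04). Rhox6 had 92.1, 99.3 and 16.5 FPKM in 2i, against 17.1, 16.9 and 16.1 in serum (log2 fold change 1.65, SE 0.47, adjusted p = 0.008). Rhox9 had 75.2, 95.2 and 14.7 FPKM in 2i, against 22.1, 21.2 and 12.3 in serum (log2 fold change 1.38, SE 0.50, adjusted p = 0.032). In both, replicate 3 of 2i was at the serum level. Without that library their log2 fold changes were 2.48 and 2.21. Without 2i replicate 2, Rhox6 had an adjusted p of 0.052 and Rhox9 one of 0.17. With the replicate block Rhox6 had 0.07. In the 6 wild-type libraries alone Rhox6 had 0.091 and Rhox9 had 0.16. Rhox9 had 0.14 without 2i replicate 1 and 0.12 without serum replicate 3. Of the list, 3 members rose without 2i replicate 2, and 1 was lower without 2i replicate 1, without 2i replicate 2 or without serum replicate 3. For the Pramel family, whose members are leucine-rich repeat proteins of the germline and early embryo, 7 of 9 tested members rose and 0 fell (median log2 fold change 1.98). Pramel6 had 279, 281 and 130.4 FPKM in 2i, against 8.59, 5.83 and 3.23 in serum (log2 fold change 5.18, SE 0.36, adjusted p = 2.3e-08). Pramel7 had 51.8, 47.2 and 21.6 FPKM in 2i, against 2.94, 2.88 and 3.77 in serum (log2 fold change 3.37, SE 0.56, adjusted p = 1.2e-04). Pramef17 had 98.98, 96.7 and 59.1 FPKM in 2i, against 2.52, 2.32 and 1.61 in serum (log2 fold change 4.99, SE 0.29, adjusted p = 3.6e-09). All 2i libraries of these genes were above every serum library, with replicate 3 the lowest of them. Pramel3 averaged 23.1 ± 12.5 in 2i and 0.161 ± 0.145 FPKM in serum, and its log2 fold change was 4.99, or 4.20 and 6.41 with pseudocounts of 1 and 0.1. Both families consist of near copies that can share reads.

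Among imprinted genes, 7 of 37 tested members rose and 15 fell (median log2 fold change -0.49). Phlda2, a growth inhibitor of the placenta, had 40.4, 45.2 and 48.6 FPKM in 2i, against 633, 683 and 477 in serum (log2 fold change -3.71, SE 0.13, adjusted p = 8.0e-11). Ascl2, a neighbour in the same imprinted domain, had 7.41, 8.403 and 7.66 FPKM in 2i, against 65.7, 60.02 and 53.04 in serum (log2 fold change -2.85, SE 0.33, adjusted p = 4.1e-06). Cdkn1c, a cyclin-dependent kinase inhibitor of that domain, had 44.8, 51.6 and 7.93 FPKM in 2i, against 195, 219 and 186 in serum (log2 fold change -2.88, SE 0.49, adjusted p = 1.5e-04; -2.04 without replicate 3 of 2i). Peg10, a retrotransposon-derived gene, averaged 225 ± 36.7 in 2i and 488 ± 71.9 FPKM in serum and fell, and Grb10, a growth factor receptor adaptor, averaged 166 ± 47 in 2i and 272 ± 50.3 FPKM in serum and was called lower (log2 fold change -0.73, SE 0.21, adjusted p = 0.0089) but not with the replicate block (adjusted p = 0.085). Plagl1, a zinc finger gene, rose in all 3 libraries (369, 311 and 449.7 FPKM in 2i, against 18.4, 15.97 and 11.5 in serum; log2 fold change 4.59, SE 0.28, adjusted p = 5.1e-09). H19, a non-coding RNA that shares an enhancer with Igf2, had 527, 429 and 14.6 FPKM in 2i, against 238, 268 and 146 in serum. Igf2, a growth factor, had 215, 227 and 13.3 FPKM in 2i, against 37.3, 50.1 and 26.3 in serum. Neither was called, and replicate 3 of 2i was below every serum library while replicates 1 and 2 were above. H19 was at -0.49 (adjusted p = 0.69) with all libraries and at 1.17 (adjusted p = 0.036) without replicate 3 of 2i. Igf2 was at 1.24 and, without that library, at 2.58 (adjusted p = 0.001). Without that library 11 imprinted genes were higher in place of 7.

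Markers of the rare two-cell-like state gave no uniform change: 6 of 21 tested members rose and 2 fell (median log2 fold change 0.52). Zscan4d had 14.96, 15.96 and 5.02 FPKM in 2i, against 11.1, 14.3 and 2.55 in serum. Zscan4c had 7.09, 8.49 and 3.81 FPKM in 2i, against 11.98, 10.6 and 4.22 in serum. Neither was called. Zscan4a, of the same family, was called lower. Its call was lost without 2i replicate 3 (log2 fold change -1.21, adjusted p = 0.08), serum replicate 1 (-1.37, adjusted p = 0.068) or serum replicate 2 (-1.23, adjusted p = 0.089). The counts depended on single libraries: without 2i replicate 3, 10 members were higher and 1 lower, and without 2i replicate 1 or 2, and in the 6 wild-type libraries alone, there was 1 higher member, without serum replicate 2 there were 3 and without serum replicate 3 there were 2, and 1 member was lower without serum replicate 1 or 2. Calcoco2, an autophagy receptor, was higher in all 3 libraries (632, 604 and 291 FPKM in 2i, against 67.9, 74.8 and 66.2 in serum; log2 fold change 2.78, SE 0.34, adjusted p = 6.6e-06). Zfp750, an epidermal zinc finger factor, was lower (9.38 ± 5.16 in 2i and 26.1 ± 4.76 FPKM in serum).

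Genes of the retinoic acid response were mostly higher in 2i although no retinoic acid is listed for either medium: 14 of 22 tested members rose and 4 fell (median log2 fold change 1.34). Rarb, a retinoic acid receptor that is its own target (chromosome 14, 17263354 to 17407990, minus strand), had 45.7, 40.7 and 49.1 FPKM in 2i, against 1.14, 0.936 and 0.427 in serum (log2 fold change 5.13, SE 0.22, adjusted p = 3.4e-10). Cyp26a1, which degrades retinoic acid, had 42.98, 46.6 and 61.2 FPKM in 2i, against 2.68, 2.83 and 2.07 in serum (log2 fold change 4.06, SE 0.41, adjusted p = 9.1e-07). Stra8, the retinoic acid-induced gene of meiotic entry, had 981, 954 and 666 FPKM in 2i, against 108, 104 and 88.3 in serum (log2 fold change 3.09, SE 0.18, adjusted p = 3.0e-09). Stra6, a retinol transporter, averaged 15.5 ± 4.22 in 2i and 2.12 ± 0.743 FPKM in serum and rose too. Other genes of the response, named after their values were seen, were also higher: Hoxa2 averaged 25.8 ± 5.89 in 2i and 1.61 ± 1.005 FPKM in serum, Meis2 76.1 ± 10.8 in 2i and 5.85 ± 2.84 FPKM in serum, and Dhrs3, a retinal reductase, 75.7 ± 22.6 in 2i and 11.1 ± 2.62 FPKM in serum. The serum libraries of Rarb, Cyp26a1 and Stra8 were all below the 2i libraries by more than 5-fold. The cellular retinoic acid-binding proteins fell: Crabp1 averaged 44.03 ± 9.31 in 2i and 187 ± 23.8 FPKM in serum (log2 fold change -2.09, SE 0.53, adjusted p = 0.0038) and Crabp2 12 ± 5.08 in 2i and 36.8 ± 4.38 FPKM in serum (log2 fold change -1.67, SE 0.49, adjusted p = 0.0098), the second with an adjusted p of 0.055 without 2i replicate 3 and 0.075 without replicate 3 of both cultures. Without replicate 3 of both cultures 2 members in place of 4 were lower.

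Mesoderm genes included more rises than falls: 11 of 25 tested members rose and 5 fell (median log2 fold change 0.72). Gsc, the goosecoid homeobox gene of the organiser, had 73.8, 71.1 and 47.8 FPKM in 2i, against 5.28, 3.08 and 3.503 in serum (log2 fold change 3.87, SE 0.50, adjusted p = 1.1e-05). Wnt3a, a ligand of the primitive streak, had 9.02, 10.2 and 13.1 FPKM in 2i, against 0.952, 1.35 and 0.746 in serum (log2 fold change 2.90, SE 0.44, adjusted p = 5.0e-05). Evx1, a homeobox gene of the streak, had 9.51, 16.1 and 1.95 FPKM in 2i, against 0.331, 0.874 and 0.113 in serum (log2 fold change 3.06, SE 0.53, adjusted p = 1.9e-04; 3.86 without replicate 3 of 2i and 3.93 with a pseudocount of 0.1). T, the brachyury gene, and Mixl1 were not called (5.98 ± 2.01 in 2i and 4.79 ± 3.27 FPKM in serum for T, 6.04 ± 2.68 in 2i and 3.13 ± 1.18 FPKM in serum for Mixl1). Mixl1 was called higher without 2i replicate 3 (adjusted p = 0.014), with the replicate block (0.036), after quantile normalization (0.031) and in the deposited normalised table (0.021). Hand1 (1.12 ± 0.883 in 2i and 5.89 ± 1.85 FPKM in serum), Tal1 (0.732 ± 0.383 in 2i and 4.23 ± 0.754 FPKM in serum) and Mesp1 (0.308 ± 0.194 in 2i and 2.37 ± 0.959 FPKM in serum), factors of later mesoderm, were lower, with Mesp1 at -1.80 on the log2 scale, or -2.62 with a pseudocount of 0.1.

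Markers of other lineages were low or mixed. For neural genes, 3 of 28 tested members rose and 5 fell (median log2 fold change -0.47). Gap43, a growth cone protein, had 21.3, 14.2 and 1.18 FPKM in 2i, against 127, 145 and 94.95 in serum (log2 fold change -3.90, SE 1.197, adjusted p = 0.013). Sox11, a SoxC factor, had 13.8, 11.2 and 1.24 FPKM in 2i, against 57.9, 69.4 and 43.6 in serum (log2 fold change -3.09, SE 0.97, adjusted p = 0.015), but without 2i replicate 3 the adjusted p was 0.075 for Gap43 (log2 fold change -2.76) and 0.085 for Sox11 (-2.13), it was 0.1 and 0.11 without replicate 3 of both cultures, and then 1 member was lower in place of 5, against 3 without serum replicate 3, 9 in the 6 wild-type libraries alone and 8 when centred by chromosome. Nefl and Nefm, neurofilament subunits, rose (192 ± 88.4 in 2i and 42.9 ± 14.4 FPKM in serum for Nefl, 70.4 ± 27.6 in 2i and 6.49 ± 3.05 FPKM in serum for Nefm). Lhx2, a LIM homeobox gene, averaged 13.7 ± 1.85 in 2i and 2.18 ± 0.808 FPKM in serum. Sox1 was not called (46.2 ± 21.4 in 2i and 57.4 ± 13.4 FPKM in serum). For endoderm genes, 5 of 29 tested members rose and 6 fell (median log2 fold change -0.35). Gata6, a primitive endoderm regulator, had 40.4, 38.2 and 25.4 FPKM in 2i, against 11.8, 9.52 and 14.4 in serum (log2 fold change 1.49, SE 0.21, adjusted p = 2.8e-05), while Sox17 averaged 8.47 ± 3.75 in 2i and 5.88 ± 1.86 FPKM in serum without a call. Gata4 and Sox7, also regulators of this lineage, were called lower (log2 fold change -1.27 for Gata4 and -2.32 for Sox7). The call of Gata4 was lost without 2i replicate 3 (log2 fold change -0.857, adjusted p = 0.19), with the replicate block (adjusted p = 0.065) and under other alternatives. Lamb1, a laminin chain, fell (40.9, 45.1 and 9.15 FPKM in 2i, against 191, 186 and 167 in serum; log2 fold change -2.79, SE 0.46, adjusted p = 1.2e-04; -2.06 without 2i replicate 3). Cubn, an endocytic receptor, averaged 0.326 ± 0.142 in 2i and 5.61 ± 1.46 FPKM in serum (log2 fold change -2.88, or -3.78 with a pseudocount of 0.1). Without replicate 3 of both cultures 3 endoderm members were lower. For trophoblast genes, 3 of 18 tested members rose and 6 fell (median log2 fold change -0.39), with Gata3 averaging 7.78 ± 4.25 in 2i and 0.811 ± 0.0721 FPKM in serum and Krt19 averaging 16.5 ± 10.2 in 2i and 98.1 ± 48.1 FPKM in serum (log2 fold change -2.66, and -1.96 without 2i replicate 3). With the block, without 2i replicate 3 and in the 6 wild-type libraries alone, 5 trophoblast members were higher.

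Markers of cells that could be carried along in a culture were examined as well. For fibroblasts and feeder cells, 4 of 21 tested members rose and 3 fell (median log2 fold change 0.57). Their summed level was 1620, 1378 and 1452 FPKM in 2i, against 1612, 1542 and 1438 FPKM in serum, and Col1a1 (25.7 ± 14.6 in 2i and 14.1 ± 5.39 FPKM in serum) and Acta2 (34.4, 36.4 and 0.953 FPKM in 2i, against 11.6, 12.01 and 2.48 in serum) were not called. Acta2 had a log2 fold change of 0.68, and of 2.22 without 2i replicate 3 (adjusted p = 0.0025). Col3a1 was called (21.4, 19.6 and 1.27 FPKM in 2i, against 1.03, 0.673 and 0.508 in serum; log2 fold change 2.92, SE 0.89, adjusted p = 0.012), with adjusted p-values of 0.066 and 0.063 without 2i replicate 1 or 2, 0.051 in the 6 wild-type libraries alone and a log2 fold change of 4.10 without 2i replicate 3. Dcn, another matrix gene, was at 10.4, 7.37 and 0.338 FPKM in 2i, against 0.132, 0 and 0.119 in serum. Replicate 3 of 2i was thus low for fibroblast markers, and without it 8 members were higher in place of 4. Thy1 (10.6 ± 2.19 in 2i and 51.6 ± 11.3 FPKM in serum) and Mmp2 (19.3 ± 10.3 in 2i and 76.96 ± 3.14 FPKM in serum) were lower in 2i. For blood and endothelium, 2 of 14 tested members rose and 6 fell (median log2 fold change -0.66), where Pecam1, which embryonic stem cells also express, had 535, 564 and 536 FPKM in 2i, against 229, 192 and 224 in serum (log2 fold change 1.34, SE 0.21, adjusted p = 5.9e-05). Spi1 averaged 18.5 ± 2.06 in 2i and 3.24 ± 0.396 FPKM in serum. The count of lower members in this list was 3 without 2i replicate 3, without serum replicate 2 or in the 6 wild-type libraries alone. For targets of SRF and YAP, 6 of 26 tested members rose and 6 fell (median log2 fold change 0.14), with 11 higher without 2i replicate 3 and 3 higher without 2i replicate 1 and in the 6 wild-type libraries alone. Ctgf and Cyr61, the usual YAP targets, were not called (85.3 ± 39.02 in 2i and 80.4 ± 26.3 FPKM in serum for Ctgf, 87.8 ± 35.99 in 2i and 55.9 ± 22.1 FPKM in serum for Cyr61). Cyr61 was called higher with the replicate block (adjusted p = 0.004) and without 2i replicate 3 (0.0064). For collagens, laminins, nidogens and their modifying enzymes, 4 of 28 tested members rose and 8 fell (median log2 fold change 0.001), with 9 higher without 2i replicate 3. Nid1, nidogen, rose (486 ± 32.5 in 2i and 236 ± 19.9 FPKM in serum).

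Genes of glycolysis and the hypoxia response moved one way: 0 of 29 tested members rose and 25 fell (median log2 fold change -1.45), 19 of them at least 2-fold. Slc2a1, the glucose transporter GLUT1 (chromosome 4, 118781350 to 118809934, plus strand), had 302, 335 and 547 FPKM in 2i, against 3552, 3678 and 3281 in serum (log2 fold change -3.20, SE 0.19, adjusted p = 4.8e-09). Ldha, lactate dehydrogenase A, had 446, 411 and 777 FPKM in 2i, against 3572, 3574 and 3189 in serum (log2 fold change -2.72, SE 0.24, adjusted p = 2.1e-07). Egln3, a prolyl hydroxylase that HIF1 induces, had 24.2, 22.8 and 24.9 FPKM in 2i, against 377, 379 and 382 in serum (log2 fold change -3.96, SE 0.28, adjusted p = 2.6e-08). All 2i libraries were at least 4-fold below every serum library, and for Slc2a1 and Ldha replicate 3 was the highest of the 2i culture. Bnip3, a mitophagy receptor and HIF1 target, had 28.5, 21.7 and 108 FPKM in 2i, against 607, 561 and 569.5 in serum (log2 fold change -3.81, SE 0.41, adjusted p = 1.7e-06; -4.51 without 2i replicate 3). Ankrd37, another HIF1 target, had 8.597, 7.28 and 9.98 FPKM in 2i, against 102, 122 and 95.02 in serum (log2 fold change -3.56, SE 0.30, adjusted p = 1.4e-07). Ndufa4l2, a mitochondrial HIF1 target outside the list, stood apart upward in replicate 3: it had 6.87, 3.53 and 98.1 FPKM in 2i, against 251, 243 and 319 in serum (log2 fold change -4.23, SE 0.85, adjusted p = 6.8e-04), and the log2 fold change was -5.63 without that library and -3.32 without 2i replicate 2. Hk2 and Pfkp, which catalyse early steps, fell less (667 ± 164 in 2i and 1083 ± 111 FPKM in serum for Hk2, 245 ± 56.1 in 2i and 503 ± 19.2 FPKM in serum for Pfkp).

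Enzymes of the rest of the pathway, named after their values were seen, also fell. The liver isoform of phosphofructokinase, Pfkl, averaged 97.5 ± 41.7 in 2i and 701 ± 27.4 FPKM in serum (log2 fold change -2.92, SE 0.22, adjusted p = 5.3e-08). Aldolase A, Aldoa, averaged 1721 ± 276 in 2i and 4181 ± 119.8 FPKM in serum (log2 fold change -1.29, SE 0.13, adjusted p = 1.0e-06), and pyruvate kinase, Pkm, averaged 1025 ± 237 in 2i and 4275 ± 180.4 FPKM in serum (log2 fold change -2.08, SE 0.14, adjusted p = 1.8e-08). Lower levels were also called for Tpi1 (log2 fold change -2.15), Pgk1 (-2.89), Eno1 (-1.96) and Gapdh (-0.58), whose processed pseudogenes can draw reads away. The 4 members without a call were Slc2a3, Hk1, Pdk3 and Vegfa. Replicate 3 of 2i lay above its sisters by a median of 0.53 on the log2 scale over this list.

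**Figure D3:**
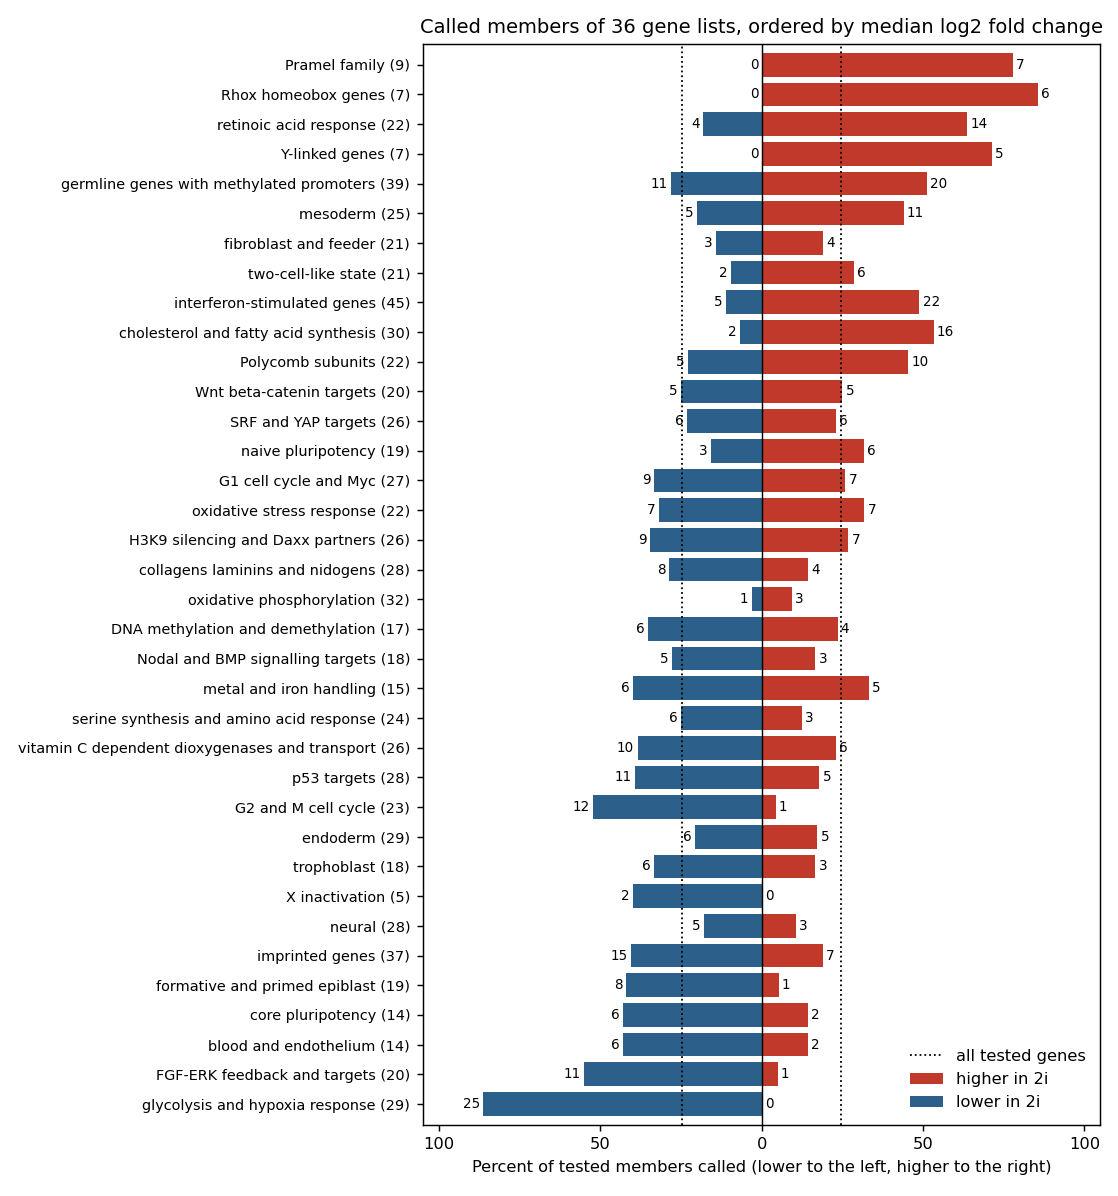
Tested members called higher (right of 0) and lower (left of 0) in wild-type 2i than in wild-type serum for each gene list, as percent of the tested members, with counts beside the bars, the number tested in brackets and the share over all tested genes (24.7% higher, 24.8% lower) as dotted lines. Glycolysis and hypoxia response has 25 of 29 members lower and none higher, and the Pramel, Rhox and Y-linked lists have members called higher and none called lower.

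Enzymes and transporters that use vitamin C were split: 6 of 26 tested members rose and 10 fell (median log2 fold change -0.11). Slc23a1 and Slc23a2 are the sodium-dependent ascorbate transporters. Slc23a1 fell (2.1, 2.88 and 2.58 FPKM in 2i, against 9.804, 10.9 and 8.103 in serum; log2 fold change -1.74, SE 0.23, adjusted p = 1.5e-05), and Slc23a2 rose (87.6, 89.6 and 127 FPKM in 2i, against 64.6, 65.7 and 71.6 in serum; log2 fold change 0.57, SE 0.14, adjusted p = 0.0039). The H3K9 demethylases Kdm3a and Kdm3b rose (485 ± 38.5 in 2i and 288 ± 21.9 FPKM in serum for Kdm3a, 324 ± 18.1 in 2i and 192 ± 6.81 FPKM in serum for Kdm3b), whereas Kdm4c fell (94.6 ± 8.38 in 2i and 215 ± 1.91 FPKM in serum). P4ha1 and P4ha2, collagen prolyl hydroxylases that are also HIF1 targets, fell as well, with 36.1 ± 7.18 in 2i and 147 ± 15.1 FPKM in serum for P4ha1 and 16.5 ± 0.449 in 2i and 72.8 ± 7.43 FPKM in serum for P4ha2. No called rise in this list reached 2-fold, and 7 of the falls did.

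Sterol and fatty acid synthesis genes were higher by small amounts: 16 of 30 tested members rose and 2 fell (median log2 fold change 0.37), with 4 rises of at least 2-fold. Ebp, a sterol isomerase, had 268, 261 and 285 FPKM in 2i, against 65.3, 59.1 and 65.6 in serum (log2 fold change 2.09, SE 0.17, adjusted p = 8.3e-08). Msmo1, a sterol oxidase, had 744, 754 and 1155 FPKM in 2i, against 416, 361 and 440.2 in serum (log2 fold change 1.10, SE 0.15, adjusted p = 2.4e-05). Elovl6, a fatty acid elongase, had 495, 508 and 634 FPKM in 2i, against 264, 246 and 256 in serum (log2 fold change 1.09, SE 0.099, adjusted p = 3.3e-07). The highest library was 2i replicate 3 for each of these genes. Sqle, squalene epoxidase, rose as well (533 ± 27.9 in 2i and 318 ± 30.4 FPKM in serum). Fasn and Scd2 were not called, Scd2 with an adjusted p of 0.036 with the replicate block, and Lpin1, a phosphatidate phosphatase, fell (49.1 ± 12.4 in 2i and 104.7 ± 13.4 FPKM in serum). The number of lower members, 2, was 5 without 2i replicate 3 and 1 without 2i replicate 2.

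Among serine synthesis and amino acid response genes, 3 of 24 tested members rose and 6 fell (median log2 fold change -0.11). Phgdh, Psat1 and Psph, the enzymes of serine synthesis, all fell: Phgdh had 27.9, 27.6 and 37.2 FPKM in 2i, against 104, 110.3 and 77.9 in serum (log2 fold change -1.64, SE 0.18, adjusted p = 2.7e-06), Psat1 averaged 844 ± 148 in 2i and 1400.0 ± 31.6 FPKM in serum and Psph 149 ± 7.005 in 2i and 270.4 ± 42.5 FPKM in serum. Asns, asparagine synthetase, rose (2377 ± 293 in 2i and 1213 ± 28.7 FPKM in serum). The serum libraries of the serine enzymes were all above those of 2i. Atf4, the regulator of the response, was called higher (log2 fold change 0.53, SE 0.17, adjusted p = 0.017) but not without 2i replicate 3 (0.074), serum replicate 1 (0.057), serum replicate 3 (0.063) or replicate 3 of both cultures (0.21), nor with the replicate block (0.13) or in the 6 wild-type libraries alone (0.12). With the block, in the 6 wild-type libraries alone, and also without 2i replicate 3 or serum replicate 3, 1 member was higher, without 2i replicate 1 there were 5, and without replicate 3 of both cultures 11 were lower. For nuclear genes of oxidative phosphorylation, 3 of 32 tested members rose and 1 fell (median log2 fold change -0.009), and no called change reached 2-fold. Among them was Ndufb5, a complex I subunit (409, 418 and 419.5 FPKM in 2i, against 308, 289 and 298 in serum; log2 fold change 0.48, SE 0.13, adjusted p = 0.0067). The number of lower members ranged from 0 to 3 and that of higher members from 1 to 5 over the alternatives.

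Metal handling and redox genes were read against 24.7% higher and 24.8% lower over all tested genes: for metals and iron, 5 of 15 tested members rose and 6 fell (median log2 fold change -0.052); for the oxidative stress response, 7 of 22 tested members rose and 7 fell (median log2 fold change 0.022). Steap3, a ferrireductase, rose (427, 451 and 260.3 FPKM in 2i, against 89.8, 86.6 and 51.5 in serum; log2 fold change 2.31, SE 0.24, adjusted p = 1.1e-06). Slc39a14, a transporter of zinc and iron, fell (19.9, 28.3 and 8.297 FPKM in 2i, against 121, 124 and 83.3 in serum; log2 fold change -2.65, SE 0.32, adjusted p = 5.4e-06), and Tfrc, the transferrin receptor, fell (442 ± 12.9 in 2i and 759.8 ± 37.2 FPKM in serum). Gpx1, a selenium-dependent glutathione peroxidase, rose about 4-fold (4638, 4892 and 3920.3 FPKM in 2i, against 1075, 1189 and 809.8 in serum; log2 fold change 2.14, SE 0.17, adjusted p = 9.0e-08), and Nqo1, a quinone reductase and NRF2 target, rose (193 ± 10.5 in 2i and 71.9 ± 13.8 FPKM in serum). Txnip, a thioredoxin inhibitor that glucose induces, fell (592, 603 and 362 FPKM in 2i, against 1799, 1479 and 1966 in serum; log2 fold change -1.78, SE 0.17, adjusted p = 5.2e-07). Gstm1, a glutathione transferase, averaged 23.2 ± 5.02 in 2i and 74.1 ± 2.24 FPKM in serum and fell. Without serum replicate 3 the metal list had 3 higher and 3 lower members, in the 6 wild-type libraries alone 3 lower, and without 2i replicate 2 it had 3 higher.

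Interferon-stimulated genes had the largest downward displacement of 2i replicate 3 among the 36 lists: 22 of 45 tested members rose and 5 fell (median log2 fold change 0.44). Ifi27, an interferon-induced mitochondrial protein, had 161, 160.4 and 28.7 FPKM in 2i, against 2.696, 1.61 and 2.32 in serum (log2 fold change 5.10, SE 0.53, adjusted p = 1.3e-06; 5.92 without 2i replicate 3). Rtp4, a chaperone of receptors, had 30.04, 31.7 and 3.89 FPKM in 2i, against 0.757, 1.04 and 0.549 in serum (log2 fold change 3.68, SE 0.61, adjusted p = 1.2e-04; 4.63 without it). Irf7, a regulator of interferon genes, had 17.8, 17.9 and 1.85 FPKM in 2i, against 0.744, 0.311 and 0.368 in serum (log2 fold change 3.27, SE 0.57, adjusted p = 1.9e-04; 4.26 without it). In these genes replicate 3 of 2i was several-fold below its sisters and above all serum libraries. Isg15, a ubiquitin-like modifier, had 71.5, 80.95 and 1.76 FPKM in 2i, against 3.32, 4.497 and 1.15 in serum (log2 fold change 2.91, SE 0.97, adjusted p = 0.021), so that replicate 3 overlapped with serum. Its log2 fold change was 4.60 (adjusted p = 5.3e-06) without 2i replicate 3, and its adjusted p was 0.11 without 2i replicate 1 or 2, 0.082 without serum replicate 3 and 0.14 in the 6 wild-type libraries alone. The count of 22 higher members was 13 without 2i replicate 1, without 2i replicate 2 or without serum replicate 3, 14 with the replicate block and 12 in the 6 wild-type libraries alone.

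Other members of this list were lower or not called. H2-K1, a classical MHC class I heavy chain, fell (114, 129.5 and 58.9 FPKM in 2i, against 199, 219 and 169 in serum; log2 fold change -1.02, SE 0.24, adjusted p = 0.0021), and Bst2, a restriction factor also called tetherin, fell (284, 294 and 128 FPKM in 2i, against 619.9, 632 and 643 in serum; log2 fold change -1.52, SE 0.25, adjusted p = 9.8e-05). B2m, the light chain of MHC class I, averaged 146 ± 45.8 in 2i and 134 ± 9.46 FPKM in serum and was not called. Oas3, an oligoadenylate synthetase, was lower (2.005, 2.201 and 1.58 FPKM in 2i, against 15.1, 11.8 and 12.9 in serum; log2 fold change -2.50, SE 0.27, adjusted p = 1.9e-06). For these members replicate 3 of 2i was the lowest library of all 6, with the serum libraries above it. Psmb8, an immunoproteasome subunit, and Gbp2, a guanylate-binding protein, were not called: Psmb8 had 10.3, 12.7 and 0.335 FPKM in 2i, against 16.8, 17.6 and 6.39 in serum, and Gbp2 had 20.7, 19.9 and 1.08 FPKM in 2i, against 31.9, 40.7 and 7.68 in serum. Gbp2 had an adjusted p of 0.048 with the replicate block, and Psmb8 one of 0.035 without 2i replicate 2.

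For p53 targets, 5 of 28 tested members rose and 11 fell (median log2 fold change -0.27). Zmat3 (117 ± 9.65 in 2i and 272 ± 6.28 FPKM in serum) and Bbc3, the apoptosis activator PUMA (185 ± 35.4 in 2i and 424 ± 25.02 FPKM in serum), fell, and Sesn1 (112 ± 3.896 in 2i and 53.1 ± 1.17 FPKM in serum) and Tigar, a regulator of glycolysis (335 ± 23.7 in 2i and 149 ± 16.1 FPKM in serum), rose. Cdkn1a, also a p53 target, was called higher (log2 fold change 0.645, adjusted p = 0.033). It was not called without 2i replicate 1 (adjusted p = 0.052), 2i replicate 3 (0.12), serum replicate 1 (0.065) or serum replicate 2 (0.11). Without replicate 3 of both cultures its adjusted p was 0.12. Mdm2 and Ccng1 were not called. Without replicate 3 of both cultures 7 members were lower in place of 11. For G1 regulators and Myc, 7 of 27 tested members rose and 9 fell (median log2 fold change 0.077); Mycn fell (274, 285 and 185 FPKM in 2i, against 777, 910.3 and 708 in serum; log2 fold change -1.70, SE 0.14, adjusted p = 8.1e-08), Ccne1, cyclin E1, fell (335 ± 48.1 in 2i and 534 ± 3.65 FPKM in serum), and the inhibitor Cdkn2c rose (22.6 ± 0.959 in 2i and 7.15 ± 3.03 FPKM in serum). Without 2i replicate 1, serum replicate 1 or serum replicate 2, 4 of this list were higher in place of 7. For G2 and M phase genes, 1 of 23 tested members rose and 12 fell (median log2 fold change -0.29), none by 2-fold. Bub1b, a spindle checkpoint kinase, had 444, 469 and 417 FPKM in 2i, against 697, 660.0 and 676 in serum (log2 fold change -0.61, SE 0.078, adjusted p = 9.7e-06). Top2a, topoisomerase II, had 529, 486 and 485 FPKM in 2i, against 746, 745 and 729 in serum (log2 fold change -0.57, SE 0.083, adjusted p = 4.1e-05). Both gave 2i libraries tightly grouped below serum. Ccnb1 and Mki67 were not called, and Cdk1 rose (327 ± 35.1 in 2i and 229.9 ± 4.67 FPKM in serum).

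Polycomb subunits were more often higher: 10 of 22 tested members rose and 5 fell (median log2 fold change 0.24). Bmi1, a subunit of Polycomb repressive complex 1, had 119, 119 and 85.03 FPKM in 2i, against 10.8, 11.6 and 22.7 in serum (log2 fold change 2.86, SE 0.22, adjusted p = 6.7e-08). Aebp2 and Phf19, accessory subunits of Polycomb repressive complex 2, went in opposite directions (408 ± 6.61 in 2i and 197 ± 11.3 FPKM in serum for Aebp2, 10.8 ± 1.85 in 2i and 39.8 ± 5.698 FPKM in serum for Phf19). Cbx7, the main chromobox subunit of embryonic stem cells, fell (502, 515 and 611 FPKM in 2i, against 988, 996 and 1013 in serum; log2 fold change -0.89, SE 0.12, adjusted p = 1.6e-05), and Cbx8, which is linked to differentiated cells, rose (30.96 ± 9.93 in 2i and 10.2 ± 1.99 FPKM in serum). The lower members numbered 3 in place of 5 without 2i replicate 3 and without serum replicate 2. For H3K9 silencing and partners of Daxx, 7 of 26 tested members rose and 9 fell (median log2 fold change 0.004), with 4 lower after median-ratio scaling. Daxx itself had 434, 423 and 402 FPKM in 2i, against 307, 319 and 353 in serum (log2 fold change 0.36, SE 0.072, adjusted p = 5.6e-04). Setdb1, the H3K9 methyltransferase of retroviral silencing (302 ± 42.3 in 2i and 206 ± 10.7 FPKM in serum), and Zfp809, which targets leukaemia virus sequences (375, 379.7 and 334 FPKM in 2i, against 121, 123 and 112 in serum; log2 fold change 1.61, SE 0.12, adjusted p = 5.9e-08), rose, and H3f3a, a gene for histone H3.3, the cargo of Daxx, fell (1032 ± 23.04 in 2i and 1657 ± 137 FPKM in serum). Atrx, the partner of Daxx, was not called (161 ± 14.5 in 2i and 183 ± 21.7 FPKM in serum), with an adjusted p of 0.048 with the replicate block.

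Y-linked genes were higher in 2i in part: 5 of 7 tested members rose and 0 fell (median log2 fold change 1.13). Kdm5d, an H3K4 demethylase, had 7.504, 9.904 and 6.45 FPKM in 2i, against 0.829, 0.521 and 0.356 in serum (log2 fold change 2.99, SE 0.24, adjusted p = 1.0e-07; 3.63 with a pseudocount of 0.1). Ddx3y, an RNA helicase, had 151, 143 and 127 FPKM in 2i, against 81.5, 79.6 and 50.04 in serum (log2 fold change 1.02, SE 0.26, adjusted p = 0.0041). Eif2s3y, a translation factor, had 168, 178 and 166 FPKM in 2i, against 152, 139 and 92.6 in serum. Uty had 26.3, 27.9 and 20.6 FPKM in 2i, against 25.2, 27.6 and 14.7 in serum. Neither was called. Serum replicate 3 was the lowest library for Ddx3y, Eif2s3y and Uty. In the X inactivation list, 0 of 5 tested members rose and 2 fell (median log2 fold change -0.44). Rlim, the ubiquitin ligase that removes the Xist repressor REX1, fell (93.8, 91.7 and 90.7 FPKM in 2i, against 209, 199 and 185 in serum; log2 fold change -1.10, SE 0.072, adjusted p = 1.2e-08). Xist was at 8.62, 9.81 and 5.72 FPKM in 2i, against 7.63, 7.34 and 5.07 in serum and was not called.

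Calls were spread unevenly over chromosomes. On chromosome 6, 377 of 882 tested genes were higher (42.7%) and 111 lower (12.6%), with a median log2 fold change of 0.37, against 24.7% and 24.8% over all chromosomes. Chromosomes 8 (322 higher and 174 lower of 946) and 19 (204 and 102 of 619) leaned the same way, and chromosomes 14 (82 and 228 of 619) and 1 (185 and 316 of 1035) the other way. Chromosomes 11 (267 and 462 of 1470), 15 (153 and 224 of 721) and 17 (173 and 267 of 904) also leaned towards lower genes. For genes with a mean of at least 10 FPKM, the median of chromosome 6 relative to all genes was 0.36, 0.36 and 0.52 in 2i, against -0.072, -0.071 and 0.15 in serum, on the log2 scale relative to the mean of the serum libraries. On chromosome 14 it was -0.25, -0.24 and -0.37 in 2i, against 0.088, 0.082 and -0.16 in serum. Within each culture replicate 3 thus deviated on these chromosomes, and also on 8, 19 and 1, in the direction in which 2i deviated from serum. Chromosome 11 did not show this. Its medians were -0.14, -0.12 and -0.11 in 2i, against -0.0032, 0.0067 and -0.0032 in serum. The cause was not tested. When each library was centred by chromosome, a treatment chosen after the data were seen, the log2 fold change of Ezh2, a Polycomb methyltransferase on chromosome 6, was 0.052 (adjusted p = 0.61) instead of 0.42, and that of Hells, a chromatin remodeller on chromosome 19, was 0.28 (adjusted p = 0.053) instead of 0.48. Nanog, Gdf3, Stra8 and Tlx2, also on chromosome 6, were then at 0.58, 0.88, 2.73 and 7.42 and remained called.

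**Figure D4:**
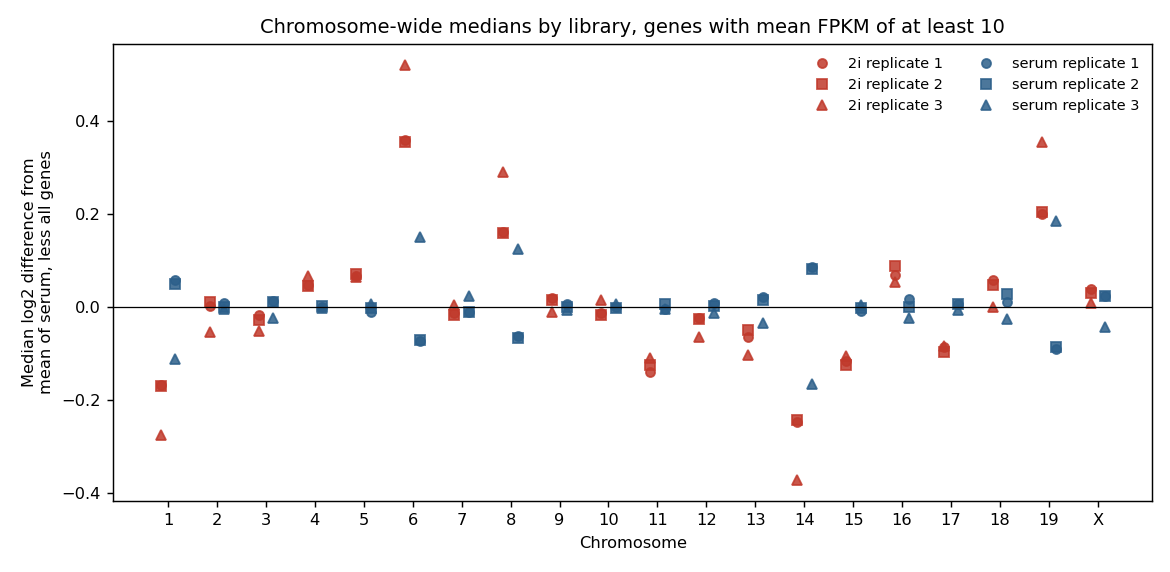
Median log2 expression of the genes of each chromosome relative to all genes (vertical axis, difference from the mean of the serum libraries), for genes with a mean of at least 10 FPKM, by chromosome, for each wild-type 2i library (left within each chromosome) and each wild-type serum library (right), 1 point per library. On chromosomes 6, 8 and 19 the 2i libraries sit above the serum libraries and on chromosomes 1 and 14 below, with replicate 3 of each culture displaced in the same direction. On chromosomes 11, 15 and 17 the 2i libraries also sit below, without that displacement of replicate 3 in 2i.

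Repeat RNA was read from FPKM values per repeat subfamily, which are shares of the reads assigned to repeats. Of 864 subfamilies tested, 85 (9.84%) were higher and 436 (50.5%) lower in 2i, together 60.3%, with a median log2 fold change of -0.36. All 2i libraries were below all serum libraries for 489 subfamilies (56.6%) and above them for 94 (10.9%). The size of the repeat read set was inferred and not counted. It came from the step between low FPKM values of 7 to 9 subfamilies in each of these libraries. Gene and repeat values were taken to be scaled alike, which the sources used here do not state, and the rescaled values below rest on this. So inferred, the repeat read set was larger in 2i. It amounted to 15.7%, 15.8% and 12.6% of the gene read set in 2i, against 12.2%, 11.2% and 10.5% in serum (mean 14.7% ± 1.80 in 2i and 11.3% ± 0.818 in serum, SD, n = 3 each), a difference of 3.40 percentage points. The groups did not overlap, and an exact permutation test gave p = 0.1, two-sided, the smallest that 3 against 3 libraries allow. Rescaled to the gene read set, 126 subfamilies (14.6%) were higher and 145 (16.8%) lower, with a median of -0.055. Quantile normalization gave 165 higher and 237 lower, and median-ratio scaling 177 and 165. The excess of lower subfamilies therefore depended on the scale, and results below are given on both.

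The largest rises were in endogenous retroviruses of the ERVK group. RLTR45-int, an internal sequence of this group, had 229, 217 and 217 FPKM in 2i, against 6.42, 6.38 and 5.59 in serum (log2 fold change 5.06, SE 0.11, adjusted p = 1.2e-13). IAPEy-int, the internal sequence of an intracisternal A-particle subfamily, had 29.2, 29.6 and 36.5 FPKM in 2i, against 0.529, 0.438 and 0.376 in serum (log2 fold change 5.05, SE 0.12, adjusted p = 1.2e-13; 4.45 with a doubled pseudocount). ETnERV3-int had 53.5, 57.7 and 72.9 FPKM in 2i, against 6.13, 6.103 and 5.66 in serum (log2 fold change 3.24, SE 0.17, adjusted p = 4.9e-09; rescaled 3.61, adjusted p = 1.9e-08), and the groups were separated more than 8-fold in each of the 3. On the gene scale the log2 fold changes were 5.43 for RLTR45-int and 5.40 for IAPEy-int. Of the intracisternal A-particle subfamilies 11 of 16 rose and none fell, with a median of 0.44, and 12 rose after rescaling. MMERVK10C and RLTR10 elements gave 5 of 9 higher and none lower, and 7 higher after rescaling. The RLTR10D long terminal repeat averaged 17.5 ± 5.02 in 2i and 3.42 ± 0.5102 FPKM in serum and rose on both scales (2.16, rescaled 2.52, adjusted p = 1.5e-06). MMERGLN-int, an ERV1 element, had 186, 196 and 51.1 FPKM in 2i, against 16.6, 16.03 and 12.8 in serum (log2 fold change 2.99, SE 0.36, adjusted p = 1.4e-05; rescaled 3.36, adjusted p = 5.0e-05; 3.62 without 2i replicate 3). For the 71 tested subfamilies whose names begin with RLTR1, RLTR4 or RLTR6 or that relate to leukaemia viruses and VL30, 26 rose and 19 fell, or 35 and 4 after rescaling. This list is set by names and is not one of ERV1 elements alone. RLTR45-int falls in it by its name, and RLTR10 names begin in the same way. Of 100 tested ERV1 subfamilies 19 rose and 26 fell, or 26 and 4 after rescaling.

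Most young LINE-1 subfamilies rose and most older ones did not. Of the 6 L1Md subfamilies, the young mouse LINE-1 elements, 5 rose (median 1.17), or all 6 after rescaling. L1Md_Gf had 14.6, 14.3 and 7.803 FPKM in 2i, against 1.39, 1.61 and 1.17 in serum (log2 fold change 2.69, SE 0.22, adjusted p = 5.1e-07; rescaled 3.05, adjusted p = 2.4e-06). L1Md_T had 19.2, 18.97 and 10.8 FPKM in 2i, against 2.38, 2.81 and 2.17 in serum (log2 fold change 2.46, SE 0.18, adjusted p = 1.4e-07; rescaled 2.82, adjusted p = 1.6e-06). L1Md_A had 20.1, 19.2 and 11.4 FPKM in 2i, against 4.16, 4.61 and 3.296 in serum (log2 fold change 1.91, SE 0.19, adjusted p = 3.5e-06; rescaled 2.27, adjusted p = 2.2e-05). Replicate 3 of 2i was the lowest of its culture for these elements and was above every serum library. Among 78 older LINE-1 subfamilies 4 were higher and 49 lower, or 10 and 13 after rescaling; the counts were 19 and 23 after quantile normalization and 19 and 15 after median-ratio scaling, and 2 were higher without serum replicate 1, without serum replicate 3 or with the replicate block. L1M3b, an old subfamily that this list does not hold, had 0.4497, 0.451 and 0.948 FPKM in 2i, against 3.92, 3.59 and 3.41 in serum (log2 fold change -1.89, SE 0.20, adjusted p = 5.8e-06; rescaled -1.69, adjusted p = 2.4e-06). The 14 B1 short interspersed elements were all lower, as were the 9 B2 and B4 subfamilies, and 8 and 7 of these remained lower after rescaling. B1_Mur4 had 9.14, 9.28 and 10.9 FPKM in 2i, against 15.5, 15.6 and 16.3 in serum (log2 fold change -0.67, SE 0.083, adjusted p = 1.7e-05; rescaled -0.32, adjusted p = 0.0053). MaLR elements gave 6 higher and 62 lower of 94, or 10 and 16 after rescaling, with ORR1A0-int among those that rose (71.6, 77.9 and 46.8 FPKM in 2i, against 16.7, 17.7 and 14.6 in serum; log2 fold change 1.94, SE 0.19, adjusted p = 2.0e-06; rescaled 2.31, adjusted p = 1.4e-05).

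MERVL and MT2 elements, some of which mark the two-cell-like state, gave 4 of 7 lower and none higher, and no call in either direction after rescaling. After quantile normalization 1 was higher and 2 were lower, and after median-ratio scaling 1 was higher and 0 were lower. Those lower on the share scale included MT2B2, MT2B and MERVL_2A-int. They were named for the size of their change and not as markers of the two-cell-like state. MT2B2 had 7.796, 7.91 and 8.52 FPKM in 2i, against 9.66, 10.2 and 10.4 in serum (log2 fold change -0.30, SE 0.084, adjusted p = 0.0065), and its log2 fold change was 0.0499 after rescaling and 0.0947 after median-ratio scaling. RLTRETN_Mm, a long terminal repeat of early transposons, had 62.03, 64.3 and 54.2 FPKM in 2i, against 80.8, 84 and 72.8 in serum (log2 fold change -0.39, SE 0.092, adjusted p = 0.002), -0.024 after rescaling and 0.0231 after median-ratio scaling. ETnERV-int was called lower (-0.53) on the share scale but not after rescaling. Of 5 tested members of the satellite list 1 rose and 1 fell on both scales. MMSAT4, a satellite, was higher (497, 498 and 489.6 FPKM in 2i, against 374, 396 and 345 in serum; log2 fold change 0.41, SE 0.12, adjusted p = 0.0075; rescaled 0.79, adjusted p = 1.1e-04). ZP3AR, another satellite, was lower (log2 fold change -0.71, SE 0.10, adjusted p = 5.4e-05, and rescaled -0.36, adjusted p = 0.0062). Reads of a subfamily come from many copies, and reads within transcripts of genes cannot be told apart here from reads of elements with their own promoter.

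**Figure D5:**
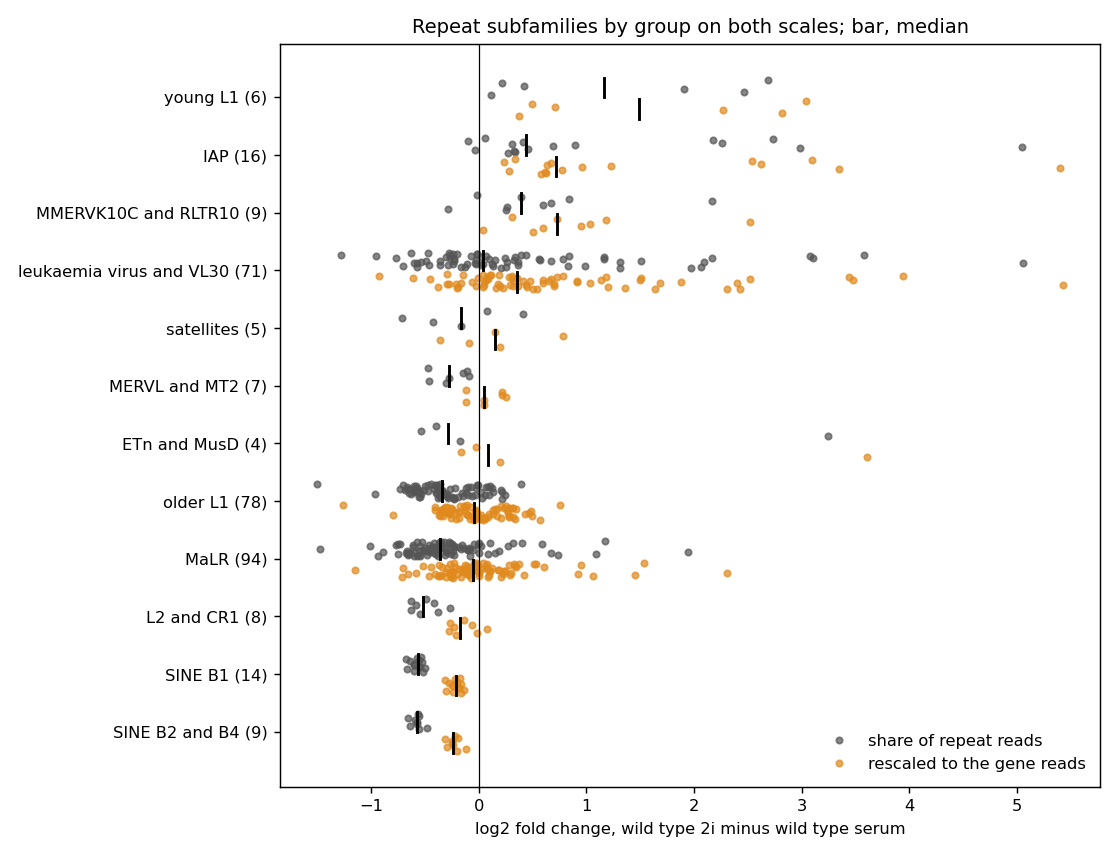
Log2 fold change of repeat subfamilies, wild-type 2i minus wild-type serum, by repeat list, on the scale of the repeat read set and after rescaling to the gene read set, 1 point per subfamily, with bars at the medians and the number tested in brackets. Young LINE-1 subfamilies lie above 0 on both scales, while the medians of MaLR (-0.36 and -0.053) and older LINE-1 (-0.34 and -0.042) lie below 0 on the first scale and near 0 on the second.

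The same media were compared in the Daxx-null line, which shares no library with the wild-type comparison. There 41.8% of tested genes were higher in 2i and 21.8% lower. Of the 4452 genes higher in wild-type cells 3383 (76.0%) were also higher in Daxx-null cells and 228 (5.12%) were lower, and of the 4461 lower ones 2122 (47.6%) were also lower and 644 (14.4%) higher. Of the 85 repeat subfamilies higher in wild-type cells 69 were higher in Daxx-null cells, and of 436 lower ones 240 were lower, against 17.5% higher and 32.2% lower over all tested subfamilies in Daxx-null cells. The 2i effect differed between the genotypes for 7757 genes (43.1%) by a test of the difference. Summed RNA of the Y-linked genes Eif2s3y, Uty and Ddx3y was 237, 173 and 205 FPKM in Daxx-null 2i, against 2.59, 2.68 and 2.18 FPKM in Daxx-null serum, while it was 345, 349 and 313 FPKM in wild-type 2i, against 258, 246 and 157 FPKM in wild-type serum. The Daxx-null libraries of both media thus also differed in RNA from the Y chromosome, whose part in the differences between genotypes was not tested.

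Etv4 and Spry2, which were not called in wild-type cells in the fit of all libraries, fell in Daxx-null cells. Etv4 averaged 34.4 ± 15.6 in Daxx-null 2i and 377 ± 34.8 FPKM in Daxx-null serum (log2 fold change -3.53 in Daxx-null cells, adjusted p of the difference = 9.8e-06). Spry2 averaged 228 ± 89.1 in Daxx-null 2i and 586 ± 20.9 FPKM in Daxx-null serum (log2 fold change -1.45 in Daxx-null cells, adjusted p of the difference = 0.0025). Dusp6 and Spry4 fell more there (log2 fold change -3.44 in Daxx-null cells, adjusted p of the difference = 1.2e-04 for Dusp6; log2 fold change -5.22 in Daxx-null cells, adjusted p of the difference = 4.2e-05 for Spry4). Ier3, which fell in wild-type cells, averaged 79.1 ± 8.78 in Daxx-null 2i and 55.5 ± 26.8 FPKM in Daxx-null serum (log2 fold change 0.65 in Daxx-null cells, adjusted p of the difference = 2.4e-06). Antigen presentation genes went the other way: B2m averaged 980.0 ± 406 in Daxx-null 2i and 53.6 ± 4.33 FPKM in Daxx-null serum (log2 fold change 4.11 in Daxx-null cells, adjusted p of the difference = 8.5e-07). H2-K1, lower in wild-type 2i, averaged 759 ± 254 in Daxx-null 2i and 114 ± 3.64 FPKM in Daxx-null serum (log2 fold change 2.68 in Daxx-null cells, adjusted p of the difference = 1.7e-06). For genes such as Prdm14 (log2 fold change 1.34 in Daxx-null cells, adjusted p of the difference = 0.78), Gsc (log2 fold change 4.61 in Daxx-null cells, adjusted p of the difference = 0.41) and Plagl1 (log2 fold change 4.48 in Daxx-null cells, adjusted p of the difference = 0.84) a difference between the lines was not called.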

How the data were processed

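Per the labels' protocols, total RNA was enriched with oligo(dT) beads, depleted of ribosomal RNA and made into libraries with random hexamers; the study's design text names only the depletion, so whether RNA without a poly(A) tail was kept is not settled here. The authors deposited FPKM values per gene and per repeat subfamily for each library, and a normalised log2 table of all libraries whose values match quantile normalization followed by log2 of the value plus 1. The submitters' processing notes name Bowtie2 2.2.6, HOMER 4.8, limma and mm9. The roles of these tools, the use of strand and the handling of reads that match several copies are not given in the sources used here. FPKM is on the authors' own scale, since values times length sum to more than the usual total. Depth per library was recovered from the steps between low FPKM values, within a tolerance of 0.1 of whole units, and intervals were not derived from it. The size of the repeat read set relative to the gene read set was inferred from such steps in both kinds of values.

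For this comparison, log2(FPKM + 0.5) was fitted with limma 3.58.1 in R 4.3.3 with a variance trend over all 18 libraries as 6 groups, which leaves 12 residual degrees of freedom. Genes with at least 1 FPKM in at least 3 libraries entered, 18002 of 24505 (73.5%), and p-values were adjusted by Benjamini-Hochberg over all of them, with calls at 0.05. Repeat subfamilies above 0 in at least 9 libraries were fitted likewise, 864 of 906, with a pseudocount of 0.526, the 5th percentile of the values. Level comparisons between genes use FPKM, which is per length. Of the gene rows, 419 stand for more than 1 copy. The fit was tested on simulated data. The main fit used no pairing, and replicate numbers paired 2i and serum libraries only in the fit with the replicate block. Deviations from the group means correlated for every shared number (r = 0.21, 0.29 and 0.41). Those of replicates 1 and 2 correlated as much across numbers (0.20 and 0.29). Deviations within a culture cancel out, so a replicate 3 that stands apart in each culture can give such values. The correlations therefore cannot show that replicates 1 and 2 were paired. The pairing in that fit follows the replicate numbers, and no label names a shared day or batch.

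Genes were named by a rule: the 12 strongest rises and 12 strongest falls of called genes whose groups do not overlap with a mean of at least 10 FPKM in the higher culture, leaving out predicted and clone-named genes; fixed genes of interest per list; at most 3 called rises and 3 called falls per list; for repeats, the 8 largest rises and 8 largest falls and at most 3 per list; and the 10 genes with the largest gap of 1 2i library from its sisters. The comparison, its 36 gene lists and its repeat lists were chosen with earlier results of these data known, and genes said to be named after their values were seen fall outside the rule. Gene coordinates are those of the files, on mm9, and promoter windows come from RefSeq on GRCm38.p6. Tests were repeated with other pseudocounts, filters and scalings, without each library and without the variance trend. They were also repeated on the wild-type libraries of 2i and serum alone, without and with the replicate number as a block. Leaving out replicate 3 of both cultures and centring each library by chromosome were added after the data were seen. A few named genes are not reported here.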

Additional observations from a re-analysis of the deposited data

Results flagged for a closer look

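For 14 of the 24 genes with the largest changes in wild-type cells, and for 5 further genes of FGF and ERK feedback, the effect of 2i differed between wild-type and Daxx-null cells by a test of the difference in limma. Over all tested genes this share was 43.1%. The 24 genes were chosen for their wild-type values, which also enter the test, so that smaller effects in Daxx-null cells were favoured in advance. The 5 further genes are the fixed genes of their list, beyond the 24, whose difference was called. These counts are therefore not results about either set. Values are log2 fold changes, 2i minus serum, and differences are wild type minus Daxx-null. Tlx2 had 7.79 in wild-type cells, 3.76 in Daxx-null cells, difference 4.03, adjusted p = 3.0e-05. Crygc had 6.13 in wild-type cells, 4.61 in Daxx-null cells, difference 1.52, adjusted p = 0.033. Cdx1 had 6.02 in wild-type cells, 4.07 in Daxx-null cells, difference 1.95, adjusted p = 0.0074. Magea5 had 5.88 in wild-type cells, 7.40 in Daxx-null cells, difference -1.52, adjusted p = 0.0093. Cd180 had 5.71 in wild-type cells, 3.74 in Daxx-null cells, difference 1.97, adjusted p = 0.0043. Cyp2b23 had 5.66 in wild-type cells, 3.81 in Daxx-null cells, difference 1.85, adjusted p = 0.011. Ly6a had 5.63 in wild-type cells, 8.35 in Daxx-null cells, difference -2.72, adjusted p = 1.3e-04. Plac8 had -5.56 in wild-type cells, -3.99 in Daxx-null cells, difference -1.58, adjusted p = 0.046. Neurod1 had -5.37 in wild-type cells, -2.45 in Daxx-null cells, difference -2.92, adjusted p = 5.8e-04. Dll1 had -4.86 in wild-type cells, -1.88 in Daxx-null cells, difference -2.98, adjusted p = 0.029. Gngt2 had -4.85 in wild-type cells, -6.00 in Daxx-null cells, difference 1.15, adjusted p = 0.035. Wdr86 had -4.65 in wild-type cells, -2.19 in Daxx-null cells, difference -2.46, adjusted p = 9.6e-04. Calca had -4.56 in wild-type cells, -3.15 in Daxx-null cells, difference -1.41, adjusted p = 0.037. Egr1 had -4.49 in wild-type cells, -3.21 in Daxx-null cells, difference -1.28, adjusted p = 0.0053. Dusp6 had -1.09 in wild-type cells, -3.44 in Daxx-null cells, difference 2.34, adjusted p = 1.2e-04. Spry4 had -2.47 in wild-type cells, -5.22 in Daxx-null cells, difference 2.76, adjusted p = 4.2e-05. Spry2 had -0.079 in wild-type cells, -1.45 in Daxx-null cells, difference 1.37, adjusted p = 0.0025. Etv4 had 0.53 in wild-type cells, -3.53 in Daxx-null cells, difference 4.06, adjusted p = 9.8e-06. Etv5 had -0.21 in wild-type cells, -1.02 in Daxx-null cells, difference 0.813, adjusted p = 0.0042. Among these genes only Etv4 had opposite signs in both lines, and it was not called in wild-type cells in the fit of all libraries. Outside this set Ier3 (-3.50 in wild-type cells and 0.65 in Daxx-null cells) and H2-K1 (-1.02 in wild-type cells and 2.68 in Daxx-null cells), described above, also had opposite signs. The Daxx-null 2i and serum cultures differed in Y-linked RNA, and the part of this in the differences was not tested.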

How the results depend on the processing

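Over all alternatives the number of genes higher in 2i ranged from 3739 to 4937 and that of lower genes from 3737 to 4780; changes of at least 2-fold ranged from 1426 to 2423 (higher) and 1525 to 2242 (lower). Leaving out 1 library gave 3739 to 4937 higher and 3737 to 4144 lower genes, 1786 to 2423 and 1906 to 2207 at 2-fold, 72 to 87 higher and 388 to 435 lower repeat subfamilies, a repeat read set larger by 2.85 to 4.43 percentage points, and 6703 to 7591 genes with a different effect in Daxx-null cells. For repeats the scale mattered: 165 were higher and 237 lower after quantile normalization, 177 and 165 after median-ratio scaling, and 145 were lower after rescaling to the gene read set. Among named values called as reported or under the alternative, those that changed sign were H19 (-1.39 to 1.17 without 1 library, the highest without 2i replicate 3), Ndufa9 (-0.079 when centred by chromosome), MT2B2 (0.095 after median-ratio scaling, 0.050 after rescaling) and RLTRETN_Mm (0.023 after median-ratio scaling); the cause was not tested. Uncalled values near 0, such as Pou5f1 (-0.17 to 0.12) and Spry2 (-0.20 to 0.19), also lay on both sides of it. Of 272 named genes with a call, 222 kept it under every alternative. The replicate block was fitted on the 6 wild-type libraries alone. With it, 4525 genes were higher and 4780 lower, against 4124 and 4343 in these libraries without a block. Of the named genes 13 lost and 15 gained a call relative to the main fit. Where such a gene is described above its blocked value stands beside it, and no other named call changed with the block. Some of these changes, such as that of Etv4, also appeared in the 6 libraries without a block, so they cannot all be ascribed to the pairing. Low FPKM values limit the folds of genes near 0 in 1 culture.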
